A study of Mus musculus with 12 samples.

Results

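The transcriptional difference between bone marrow-derived macrophages labelled as NLRC3 knockout and given lipopolysaccharide (LPS) and those labelled as NLRC3 knockout and left in medium is described here across all genes. The libraries were chosen by their labels alone, as the 3 labelled KO and LPS against the 3 labelled KO and kept in RPMI 1640, and they are 6 of the 12 libraries of the series. RNA was sequenced from macrophages grown from mouse marrow with M-CSF, the macrophage growth factor, in RPMI 1640 with fetal bovine serum. All animals carried loxP-flanked Nlrc3 alleles; in the KO (NLRC3ΔMac) a Cre recombinase driven by LysM, a promoter active in macrophages and neutrophils, is meant to remove the gene, while the wild type (WT) had the same alleles and no Cre. By their labels the groups used are macrophages with Cre and LPS for 12 h (labelled KO LPS), with Cre in medium (labelled KO medium), without Cre and with LPS for 12 h (WT LPS) and without Cre in medium (WT medium), each with 3 libraries. No strain or age is stated in the labels. Nothing in them ties a replicate to an animal of its own, so a p-value here covers the spread between these samples alone. In these bulk samples, fewer cells of a type and less RNA per cell cannot be told apart.

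LPS, a component of the outer membrane of Gram-negative bacteria, is recognised on macrophages by CD14 and the Toll-like receptor 4 (TLR4) complex. The adaptor MyD88 passes the signal to NF-kappaB and to MAP kinases, which switch on cytokines such as tumour necrosis factor, IL-1 and IL-6 together with inhibitors that end the signal. The adaptor TRIF passes it to the kinase TBK1 and to interferon beta, which acts back on the cell through its receptor to switch on interferon-stimulated genes. Macrophages given LPS are also known to take up more glucose, to make nitric oxide and itaconate, and to lower parts of lipid synthesis and of the resting gene programme. NLRC3 is a NOD-like receptor described as a brake on innate immune signalling.

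Genes known to be induced by LPS were low in libraries labelled KO LPS and high in those labelled KO medium, so every direction below is stated by the label. Whether the labels of the KO LPS and KO medium libraries were exchanged was not tested, and an exchange would turn the sign of every difference between them. Nlrc3 itself (ENSMUSG00000049871, chr16:3945007-3976632, minus strand, GRCm38) lay at 12.9, 6.68 and 4.91 CPM in libraries labelled KO LPS, against 1.41, 1.21 and 1.11 CPM in those labelled KO medium. The groups did not overlap, and Nlrc3 was higher in libraries labelled KO LPS with a log2 fold of 2.71 ± 0.56 (SE; edgeR quasi-likelihood test, Benjamini-Hochberg adjusted p = 0.00408). In WT, Nlrc3 lay at 1.04, 4.32 and 1.71 CPM with LPS, against 7.30, 12.34 and 7.10 CPM in medium. The libraries labelled KO LPS thus overlapped WT medium, and the deletion named by the label was not seen there in the gene totals. Those labelled KO medium lay below every WT medium library but within the range of WT LPS, so no loss beyond WT LPS was seen in them. Whether reads from the loxP-flanked part alone fell could not be told from gene totals. Macrophage genes were abundant in both groups: Lyz2, which encodes lysozyme, lay at 12684, 20914 and 10842 CPM in libraries labelled KO LPS, against 11036, 7834 and 5442 CPM in those labelled KO medium, and Cd68, a lysosomal glycoprotein of macrophages, at 1330.3, 1531 and 1296 CPM in libraries labelled KO LPS, against 1478, 1054 and 1076 CPM in those labelled KO medium.

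The 6 libraries held 14115083 to 18865334 counts and 17243 to 18839 genes with a count, so that 3 counts stood for 0.159 to 0.213 counts per 1000000 (CPM). Replicate 1 labelled KO LPS stood apart from the other replicates of its group: across genes the log-scale correlation of its levels was 0.921 with replicate 2 and 0.906 with replicate 3, against 0.985 between replicates 2 and 3, and of 9366 genes 128 lay more than 2 log2 units above and 307 more than 2 below the mean of the other 2 replicates on the log scale. Between libraries labelled KO medium that correlation was 0.977 for replicates 1 and 2, 0.963 for 1 and 3 and 0.941 for 2 and 3. By Xist over 50 CPM, replicates 2 and 3 labelled KO LPS were taken as female and the other 4 libraries as male. In replicates 2 and 3 Xist lay at 191 and 95.1 CPM, before TMM scaling, and Y-linked transcripts at 0.327 and 5.25 CPM. The other 4 libraries held at least 75.0 CPM of Y-linked transcripts. WT libraries taken as female held 437 to 634 CPM of Xist and 0.366 to 4.72 CPM of Y-linked transcripts. The sex of replicate 3 is thus less certain, and the term for sex used below rests on it. Among the 4186 genes called below, replicate 1 labelled KO LPS lay outside the range of the libraries labelled KO medium on the side of the call in 4035 genes (96.4%), against 99.9% for replicate 2 and 99.8% for replicate 3. The calls were made from these same libraries, so high shares follow from that choice and do not show that replicate 1 resembles its group. Libraries also differed by gene length. In length quartiles 1 (shortest) and 4, replicate 1 labelled KO LPS differed from the others of its group by a median of 0.27 and -0.27 log2 units. For libraries labelled KO medium these were 0.27 and -0.30 for replicate 2 and -0.39 and 0.40 for replicate 3. Of genes in quartile 1, 7.52% were called higher and 14.7% lower, against 17.6% and 15.0% in quartile 4. The part of length in the differences was not tested.

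Levels below are CPM scaled by trimmed-mean (TMM) factors and are given in the order of replicates 1, 2 and 3, and log2 folds are of labelled KO LPS over labelled KO medium. Adjusted p-values come from edgeR (quasi-likelihood test) and are Benjamini-Hochberg adjusted over all genes tested, and a value under 0.05 is a call. Of 13773 genes tested, 4186 were called (30.4%), of which 2082 were higher (15.1% of genes tested) and 2104 lower (15.3%) in libraries labelled KO LPS, with a median log2 fold over all genes of 0.04. Changes of more than 3 log2 units were more often falls, with 283 genes called higher and 568 called lower beyond that size. In 6304 genes (45.8%) the 3 libraries labelled KO LPS did not overlap those labelled KO medium. In the pathway lists below where 0 members are called in a direction by edgeR, 0 were also called in it by DESeq2 except 1 lower MHC class II gene and 1 lower ribosomal gene, and 0 passed an unadjusted p under 0.05 except 2 lower MHC class II, 2 lower ribosomal, 2 higher matrix and 1 higher cell death gene. The scaling sets the balance of directions: by library size alone the median of all genes was 0.78, with 5314 genes called higher (38.6%) and 1177 lower (8.55%), so that 81.9% of calls were higher in place of 49.7%. With any 1 of the 6 libraries left out, 2198 calls (52.5%) passed each time, 901 higher and 1297 lower, and 0 changed sign. A call named below passed with any 1 of the 6 libraries left out, with library size alone, with a term for sex and with DESeq2 unless a value is given to the contrary. A gene given as not called may pass under another setting: of 357 tested members of the pathway lists that were not called, 115 were called by library size alone, all higher, 40 without replicate 1 labelled KO LPS (15 higher, 25 lower), 33 by DESeq2 and 24 with the term for sex. The counts of members called move as well: of 70 counts, 1 for each list and direction, 21 moved by over 1.5 times without replicate 2 labelled KO LPS, 20 without replicate 1 labelled KO medium, 18 without replicate 3 labelled KO LPS and 18 without replicate 2 labelled KO medium.

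**Figure D1:**
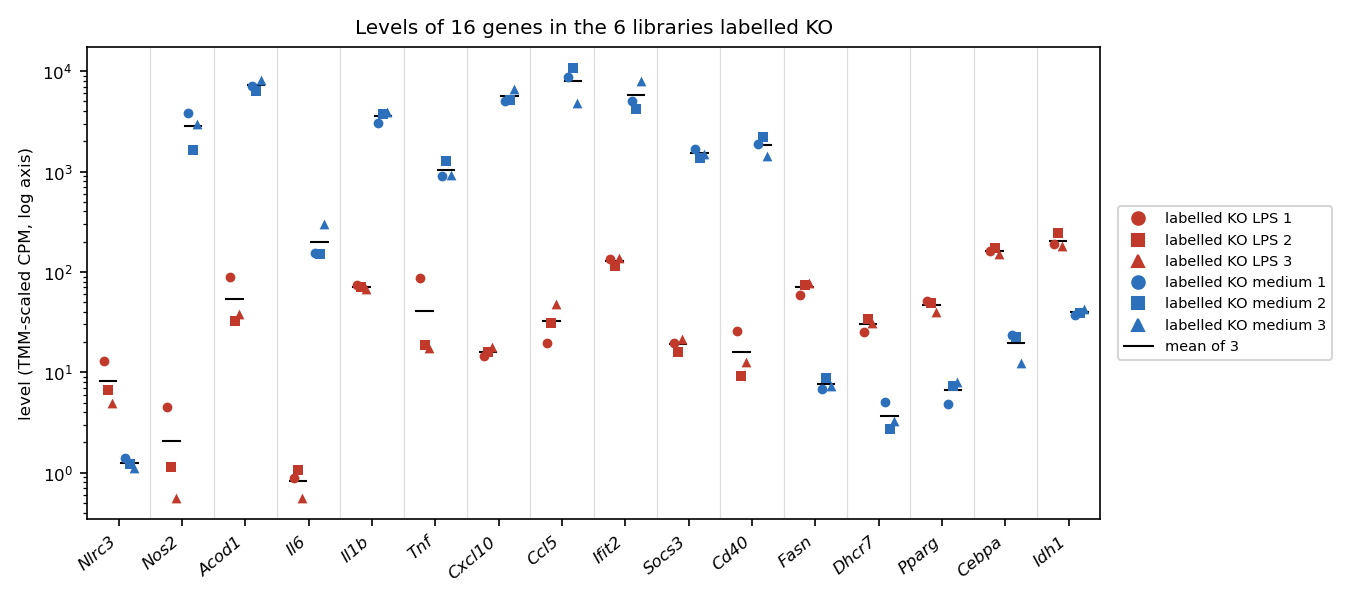
Level of 16 genes in the 3 libraries labelled KO LPS (red, left) and the 3 labelled KO medium (blue, right), in TMM-scaled CPM on a log axis, with a marker shape for each replicate and a black line at the mean of 3. Nos2, Acod1, Il6, Il1b, Tnf, Cxcl10, Ccl5, Ifit2, Socs3 and Cd40 sit lower in libraries labelled KO LPS, and Nlrc3, Fasn, Dhcr7, Pparg, Cebpa and Idh1 sit higher there.

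**Figure D2:**
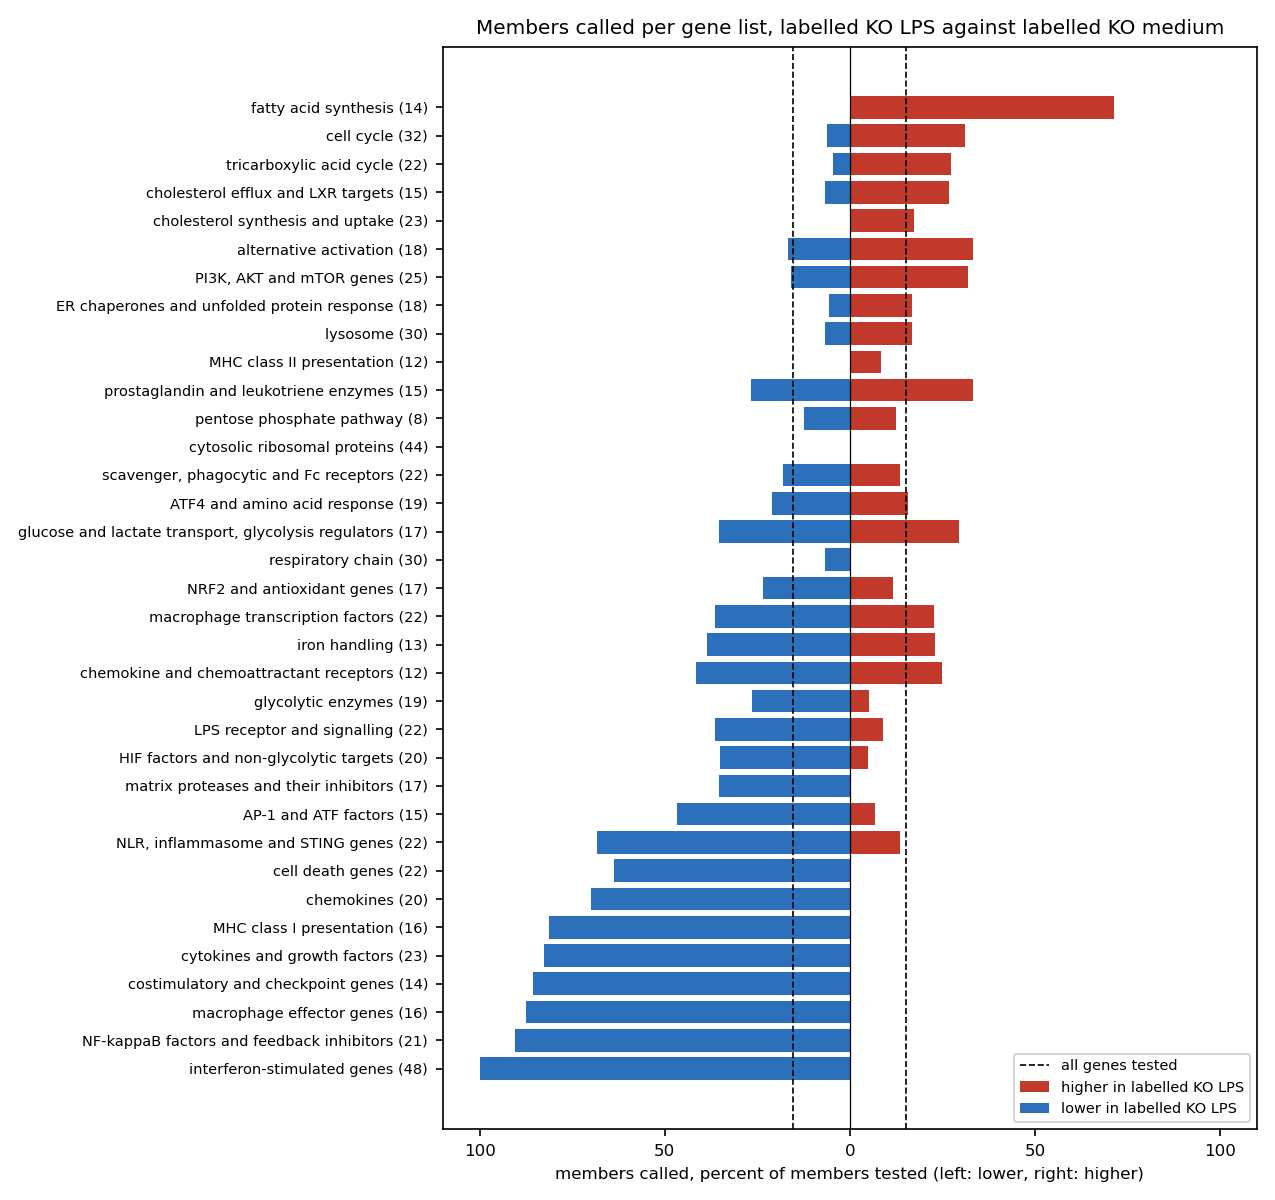
Percent of tested members called lower (left) and higher (right) in libraries labelled KO LPS for each pathway list, with dashed lines at the share of all genes tested (15.3% lower and 15.1% higher). Interferon-stimulated genes, NF-kappaB feedback inhibitors, effectors, costimulatory genes, cytokines and MHC class I genes lie far to the lower side, and fatty acid synthesis lies to the higher side.

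At the receptor, both LPS co-receptors, the adaptor Myd88 and several kinases were lower in libraries labelled KO LPS, and the receptor chain itself was not called. Of 22 listed genes of the LPS receptor and its signalling, 8 were called lower and 2 higher, with a median log2 fold of -0.41 (by library size alone 7 and 4, with a median of 0.32). The main counts were 36.4% lower and 9.09% higher, against 15.3% and 15.1% of all genes. Tlr4, the receptor chain, lay at 37.4, 38.2 and 22.1 CPM in libraries labelled KO LPS, against 32.1, 26.6 and 45.6 CPM in those labelled KO medium; the groups overlapped and its log2 fold was -0.09 ± 0.42 (edgeR adjusted p = 0.883). Ly96, which encodes the MD-2 protein that holds LPS on TLR4, lay at 15.6, 4.79 and 3.27 CPM in libraries labelled KO LPS, against 46.8, 44.6 and 28.5 CPM in those labelled KO medium. It fell with a log2 fold of -2.34 ± 0.54 (SE; edgeR quasi-likelihood test, Benjamini-Hochberg adjusted p = 0.00702). Cd14, which delivers LPS to the receptor, lay at 657, 315 and 366 CPM in libraries labelled KO LPS, against 1545, 1503 and 1549 CPM in those labelled KO medium, and the groups did not overlap. Its log2 fold was -1.78 ± 0.46 (edgeR adjusted p = 0.0131), and the adjusted p was 0.0617 and 0.0573 without replicate 2 or 3 labelled KO LPS. Myd88, the adaptor shared by most Toll-like receptors, lay at 87.03, 87.9 and 117 CPM in libraries labelled KO LPS, against 521, 466 and 505 CPM in those labelled KO medium. Myd88 fell with a log2 fold of -2.35 ± 0.30 (SE; edgeR quasi-likelihood test, Benjamini-Hochberg adjusted p = 0.000299). The kinases of the interferon branch followed, with log2 folds of -1.94 ± 0.25 (edgeR adjusted p = 0.000316) for Tbk1 and -1.94 ± 0.40 (edgeR adjusted p = 0.00404) for Ikbke. Irak3, a kinase-dead inhibitor of the pathway, fell, at -2.19 ± 0.46 (edgeR adjusted p = 0.00467), and Map3k8, the kinase that feeds the ERK branch, at -2.24 ± 0.39 (edgeR adjusted p = 0.00165). Irak1 and Tab1, kinase components close to the receptor, were called higher at 0.97 ± 0.25 (edgeR adjusted p = 0.0123) and 1.28 ± 0.33 (edgeR adjusted p = 0.0134). The Irak1 call was lost without replicate 2 labelled KO LPS (0.0533) and without replicate 1 labelled KO medium (0.0672), and Tab1 missed the threshold under 4 of the 6 left-out libraries, with adjusted p values up to 0.0608. The other adaptors Ticam1 (TRIF), Ticam2 and Tirap, and the ubiquitin ligase Traf6, were not called.

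Inhibitors that LPS switches on to end its own signal were lower in libraries labelled KO LPS. Of 21 genes of NF-kappaB subunits and feedback inhibitors, 19 were called lower and 0 higher, with a median of -2.86. By library size alone 16 were called lower, and 16 to 18 with 1 library left out. Socs3, the inhibitor of cytokine receptors that use STAT3 (ENSMUSG00000053113, chr11:117966079-117970047, minus strand), lay at 19.8, 16.04 and 21.7 CPM in libraries labelled KO LPS, against 1683, 1359.8 and 1509 CPM in those labelled KO medium. Its log2 fold was -6.305 ± 0.60 (edgeR adjusted p = 5.22e-05), and its relative Socs1, which restrains interferon receptors, lay at 1.57, 2.11 and 1.59 CPM in libraries labelled KO LPS, against 112, 106 and 71.6 CPM in those labelled KO medium. Both stood far outside the range of the other group. Nfkbia, encoding the NF-kappaB inhibitor I-kappaB alpha, lay at 80.9, 67.9 and 72.3 CPM in libraries labelled KO LPS, against 865, 804 and 883 CPM in those labelled KO medium. Nfkbia fell with a log2 fold of -3.53 ± 0.48 (SE; edgeR quasi-likelihood test, Benjamini-Hochberg adjusted p = 0.000418). Tnfaip3, encoding the ubiquitin-editing enzyme A20, lay at 62.6, 57.6 and 45.3 CPM in libraries labelled KO LPS, against 658, 527 and 1267 CPM in those labelled KO medium. Tnfaip3 fell with a log2 fold of -3.89 ± 0.61 (SE; edgeR quasi-likelihood test, Benjamini-Hochberg adjusted p = 0.000907). The phosphatase gene Dusp2 fell, at -4.46 ± 0.75 (edgeR adjusted p = 0.00131), and Dusp1, which inactivates p38 and JNK, at -2.695 ± 0.43 (edgeR adjusted p = 0.000954). Zc3h12a and Zfp36, whose products destroy cytokine mRNAs, fell, at -2.89 ± 0.45 (edgeR adjusted p = 0.000915) and -1.99 ± 0.37 (edgeR adjusted p = 0.0022). Among the subunits, Nfkb2 and Relb fell, at -2.86 ± 0.58 (edgeR adjusted p = 0.00359) and -2.06 ± 0.40 (edgeR adjusted p = 0.00306). Rela, the most constant subunit, was called at -0.96 ± 0.32 (edgeR adjusted p = 0.0402) but had an adjusted p of 0.583 by library size alone and missed the threshold without any 1 of the 6 libraries and with the term for sex.

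The promoters below are shown because the genes that fell include many known targets of NF-kappaB and of interferon, and these 4 were chosen, after a motif search, to show matches to an interferon motif, an NF-kappaB motif or both. Each is the window of 250 bases that ends just before the RefSeq gene start (GRCm38.p6), written 5′ to 3′ on the strand of the gene, with motif matches in capitals. The interferon-stimulated response element (ISRE) was searched as GAAA, any 2 bases and GAAA again, and the NF-kappaB site by its consensus, both on either strand; matches of 1 motif may overlap. Cxcl10 (chr5:92348890-92349139, minus strand) has an ISRE that starts at -213 and NF-kappaB matches at -159 and -103. Isg15 (chr4:156200819-156201068, minus strand) has 3 overlapping ISRE matches at -78, -72 and -66. Il6 (chr5:30012864-30013113, plus strand) has an NF-kappaB match at -44, and Tnfaip3 (chr10:19015411-19015660, minus strand) has one at -125 and one on the opposite strand at -12.
Cxcl10: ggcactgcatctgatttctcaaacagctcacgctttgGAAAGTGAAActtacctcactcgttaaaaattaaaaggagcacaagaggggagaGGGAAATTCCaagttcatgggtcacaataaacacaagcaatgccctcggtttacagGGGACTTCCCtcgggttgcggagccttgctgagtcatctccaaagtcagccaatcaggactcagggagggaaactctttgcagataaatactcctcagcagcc
Isg15: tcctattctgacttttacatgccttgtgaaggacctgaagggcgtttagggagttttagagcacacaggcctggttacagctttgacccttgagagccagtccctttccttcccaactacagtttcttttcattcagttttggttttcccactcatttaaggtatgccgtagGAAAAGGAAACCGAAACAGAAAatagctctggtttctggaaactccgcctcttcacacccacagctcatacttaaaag
Il6: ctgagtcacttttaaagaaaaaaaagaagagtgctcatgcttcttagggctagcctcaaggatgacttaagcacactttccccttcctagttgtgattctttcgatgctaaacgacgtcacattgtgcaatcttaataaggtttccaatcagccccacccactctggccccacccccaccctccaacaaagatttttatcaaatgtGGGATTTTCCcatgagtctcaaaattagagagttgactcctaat
Tnfaip3: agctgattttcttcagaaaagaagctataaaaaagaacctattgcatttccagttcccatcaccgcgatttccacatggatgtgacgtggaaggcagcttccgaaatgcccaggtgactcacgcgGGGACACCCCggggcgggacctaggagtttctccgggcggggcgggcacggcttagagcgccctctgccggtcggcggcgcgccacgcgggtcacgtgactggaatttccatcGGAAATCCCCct
A match is a description of these letters and not a shown binding site. The ISRE letters stood in at least 1 window of 936 of 27025 genes (3.46%; 978 of 32851 windows, 2.98%), of 117 of 1555 genes called lower (7.52%), of 35 of 1607 genes called higher (2.18%) and of 205 of 6809 tested genes not called (3.01%). The NF-kappaB consensus stood in 1204 of 27025 genes (4.46%; 1281 of 32851 windows, 3.90%), in 136 of 1555 genes called lower (8.75%), in 86 of 1607 called higher (5.35%) and in 330 of 6809 not called (4.85%). Of the listed interferon-stimulated genes with a window, 20 of 36 held an ISRE (55.6%), against 1 of 18 in the NF-kappaB feedback list, 2 of 17 cytokine, 1 of 12 chemokine, 0 of 12 fatty acid and 1 of 17 cholesterol genes. The NF-kappaB consensus stood in 9 of 18 genes of the NF-kappaB feedback list (50%), 5 of 12 chemokine, 6 of 17 cytokine, 5 of 36 interferon-stimulated, 3 of 12 fatty acid (25%) and 2 of 17 cholesterol genes.

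Inflammatory cytokines made up some of the deepest falls. Of 23 tested cytokine and growth factor genes (24 listed), 19 were called lower in libraries labelled KO LPS and 0 higher, with a median of -4.48 (-4.17 with the genes near the detection floor at their bound). By library size alone 14 were lower and 1 higher, and with 1 library left out 16 to 19 were lower. Il1b, the pro-form of interleukin-1 beta (ENSMUSG00000027398, chr2:129364570-129371139, minus strand), lay at 74.5, 71.4 and 67.4 CPM in libraries labelled KO LPS, against 3016, 3785 and 3965 CPM in those labelled KO medium. The lowest library labelled KO medium stood far above the highest labelled KO LPS, and the log2 fold was -5.66 ± 0.73 (edgeR adjusted p = 0.000317). Il1a, its close relative, lay at 3.25, 5.76 and 2.67 CPM in libraries labelled KO LPS, against 932, 801 and 1616 CPM in those labelled KO medium. Il1a fell with a log2 fold of -8.16 ± 0.92 (SE; edgeR quasi-likelihood test, Benjamini-Hochberg adjusted p = 0.000136). Il6, which drives the acute phase (ENSMUSG00000025746, chr5:30013114-30019981, plus strand), lay at 0.891, 1.05 and 0.560 CPM in libraries labelled KO LPS, against 154, 149 and 299 CPM in those labelled KO medium. The libraries labelled KO LPS held very few counts of it, and the log2 fold was -7.900 ± 1.19 (edgeR adjusted p = 0.000743). Tnf, encoding tumour necrosis factor, lay at 86.3, 18.7 and 17.6 CPM in libraries labelled KO LPS, against 909.8, 1282 and 928 CPM in those labelled KO medium. Replicate 1 labelled KO LPS was above the other replicates of its group and still below the lowest library labelled KO medium; the log2 fold was -4.67 ± 0.92 (edgeR adjusted p = 0.00312). Per length, Tgfb1 led the list in libraries labelled KO LPS, at a mean of 100.5 FPKM, and Il1b and Il1rn in those labelled KO medium, at means of 1385 FPKM and 931 FPKM.

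Several anti-inflammatory and growth factor members of the same list fell too, and others were not called. Il10, which restrains macrophages, lay at 3.41, 4.04 and 6.29 CPM in libraries labelled KO LPS, against 257, 139.5 and 329.9 CPM in those labelled KO medium. Il10 fell with a log2 fold of -5.72 ± 0.58 (SE; edgeR quasi-likelihood test, Benjamini-Hochberg adjusted p = 6.84e-05). Il1rn, the antagonist of the IL-1 receptor, lay at 293, 53.9 and 44.7 CPM in libraries labelled KO LPS, against 7512, 4336 and 8993 CPM in those labelled KO medium. It fell, at -5.73 ± 0.83 (edgeR adjusted p = 0.000579), although replicate 1 labelled KO LPS was higher than replicates 2 and 3. Il27 and Il12b, subunits of cytokines that direct T cells, fell, at -8.098 ± 0.90 (edgeR adjusted p = 0.00012) and -4.97 ± 0.90 (edgeR adjusted p = 0.00204). Il18, which with Il15 acts on natural killer cells, lay at 7.86, 4.79 and 6.37 CPM in libraries labelled KO LPS, against 73.1, 83.2 and 97.7 CPM in those labelled KO medium. Both fell, Il15 at -4.02 ± 0.32 (edgeR adjusted p = 1.85e-05) and Il18 at -3.74 ± 0.36 (edgeR adjusted p = 5.5e-05). Csf3, the growth factor of neutrophils, lay at 0.314, 0.0439 and 0.129 CPM in libraries labelled KO LPS, against 35.7, 38.9 and 66.1 CPM in those labelled KO medium. Ifnb1, encoding interferon beta, lay at 0, 0.132 and 0.172 CPM in libraries labelled KO LPS, against 2.44, 2.22 and 2.81 CPM in those labelled KO medium. The mean of the libraries labelled KO LPS was under the floor of that group, 0.138 CPM, so no fold is given. Il23a was at 0 in all 3 libraries labelled KO LPS, against 1.41, 0.403 and 0.426 CPM in those labelled KO medium, which against a floor of 3 counts per library is at least 5.41-fold lower. Tgfb1, a suppressive factor that macrophages make at rest, was not called, at 0.21 ± 0.26 (edgeR adjusted p = 0.58), nor were Vegfa, Osm and Csf2.

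Chemokines split into a large induced set that fell and a few that did not pass the test. Of 20 tested, 14 were called lower and 0 higher, with a median of -3.76. Cxcl10, which draws T cells through CXCR3 and whose promoter is printed above, lay at 14.5, 15.8 and 17.96 CPM in libraries labelled KO LPS, against 5024, 5217 and 6680.0 CPM in those labelled KO medium. The groups were separated by more than 2 orders of magnitude, with a log2 fold of -8.45 ± 0.71 (SE; edgeR quasi-likelihood test, Benjamini-Hochberg adjusted p = 2.3e-05). Its relatives Cxcl9 and Cxcl11, ligands of the same receptor, did not overlap either. Cxcl9 lay at 0.576, 3.08 and 2.15 CPM in libraries labelled KO LPS, against 349.9, 203 and 364 CPM in those labelled KO medium. Cxcl11 lay at 0.472, 0.0439 and 0 CPM in libraries labelled KO LPS, against 183, 96.5 and 275 CPM in those labelled KO medium. Ccl5, which draws T cells and monocytes (ENSMUSG00000035042, chr11:83525778-83530518, minus strand), lay at 19.5, 30.8 and 47.7 CPM in libraries labelled KO LPS, against 8679, 10644 and 4790.0 CPM in those labelled KO medium. Ccl5 fell with a log2 fold of -7.94 ± 0.56 (SE; edgeR quasi-likelihood test, Benjamini-Hochberg adjusted p = 1.45e-05). Ccl3 and Ccl4, macrophage inflammatory proteins, fell, at -5.09 ± 0.78 (edgeR adjusted p = 0.000798) and -6.54 ± 0.88 (edgeR adjusted p = 0.000398). The neutrophil attractants Cxcl1, Cxcl2 and Cxcl3 fell as well, with Cxcl2 at 47.9, 14.4 and 10.8 CPM in libraries labelled KO LPS, against 249, 351 and 505 CPM in those labelled KO medium and log2 folds of -3.595 ± 0.76 (edgeR adjusted p = 0.0046), -3.92 ± 0.82 (edgeR adjusted p = 0.00434) and -3.48 ± 0.68 (edgeR adjusted p = 0.00304). Ccl2 and Ccl7, which draw monocytes through CCR2, were not called: Ccl2 lay at 235, 4.22 and 3.53 CPM in libraries labelled KO LPS, against 559.7, 435 and 633 CPM in those labelled KO medium, and Ccl7 at 248, 1.63 and 1.12 CPM in libraries labelled KO LPS, against 767, 639.8 and 1554 CPM in those labelled KO medium. In both, the groups did not overlap, and replicate 1 labelled KO LPS lay far above replicates 2 and 3 of its group. Without replicate 1 labelled KO LPS both were called, at -7.12 (edgeR adjusted p = 0.00472) and -9.48 (edgeR adjusted p = 0.00375). Per length, Ccl6 and Ccl9 led the list in the libraries labelled KO LPS and Ccl5 in those labelled KO medium.

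Chemoattractant receptors moved in both directions, with 25% called higher and 41.7% lower, against 15.1% and 15.3% of all genes. Of 12, 3 were called higher and 5 lower (4 higher and 3 lower by library size alone, 1 to 3 higher and 3 to 5 lower with 1 library left out, with 1 higher without replicate 1 or 2 labelled KO medium, with 3 lower without replicate 2 labelled KO LPS or replicate 3 labelled KO medium). Fpr1 and Fpr2, the receptors for bacterial formyl peptides, fell, at -4.498 ± 0.40 (edgeR adjusted p = 3.39e-05) and -5.17 ± 0.41 (edgeR adjusted p = 1.77e-05), Fpr2 lying at 23.8, 13.7 and 16.97 CPM in libraries labelled KO LPS, against 606, 658 and 706 CPM in those labelled KO medium. Ccrl2, a non-signalling receptor induced by LPS, fell, at -4.07 ± 0.66 (edgeR adjusted p = 0.00107). Cxcr4, the receptor for the marrow chemokine CXCL12, was higher, at 88.5, 177 and 174 CPM in libraries labelled KO LPS, against 5.499, 9.68 and 20.1 CPM in those labelled KO medium. Its groups did not overlap, with a log2 fold of 3.64 ± 0.60 (SE; edgeR quasi-likelihood test, Benjamini-Hochberg adjusted p = 0.00124). Cx3cr1 lay at 15.5, 28.1 and 26.5 CPM in libraries labelled KO LPS, against 2.67, 6.05 and 9.88 CPM in those labelled KO medium and was called higher at 1.91 ± 0.59 (edgeR adjusted p = 0.0292), but its adjusted p was 0.12 with a term for sex and 0.0768 to 0.105 without replicate 2 or 3 labelled KO LPS or replicate 1 or 2 labelled KO medium.

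All 48 listed interferon-stimulated genes were called lower in libraries labelled KO LPS, with a median of -3.72, against 15.3% of all genes called lower. By library size alone 46 remained called, the exceptions being Oas3 and Dtx3l, and Oas3 also missed the threshold when 5 of the 6 libraries were left out in turn. Their summed level was 4955, 3819 and 6149 CPM in libraries labelled KO LPS, against 76197, 65140.3 and 93544 CPM in those labelled KO medium. The antiviral genes of the IFIT family, whose products bind foreign RNA, were among the most abundant: Ifit2 (ENSMUSG00000045932, chr19:34550694-34576419, plus strand) lay at 135, 116 and 139 CPM in libraries labelled KO LPS, against 4999, 4237 and 8066 CPM in those labelled KO medium. Its groups did not overlap, with a log2 fold of -5.47 ± 0.39 (SE; edgeR quasi-likelihood test, Benjamini-Hochberg adjusted p = 1.45e-05). Ifit1 and Ifit3 fell, at -5.82 ± 0.53 (edgeR adjusted p = 4.26e-05) and -4.21 ± 0.53 (edgeR adjusted p = 0.000276). Rsad2, encoding viperin, lay at 120.3, 83.7 and 109.7 CPM in libraries labelled KO LPS, against 9321, 8062 and 15955 CPM in those labelled KO medium. Rsad2 fell with a log2 fold of -6.73 ± 0.55 (SE; edgeR quasi-likelihood test, Benjamini-Hochberg adjusted p = 1.93e-05). Isg15, a ubiquitin-like modifier whose promoter is printed above, lay at 147, 46.4 and 84.3 CPM in libraries labelled KO LPS, against 3956, 4107 and 2322 CPM in those labelled KO medium. Isg15 fell with a log2 fold of -5.22 ± 0.75 (SE; edgeR quasi-likelihood test, Benjamini-Hochberg adjusted p = 0.000579). Mx1, a GTPase that traps viral nucleoproteins, fell, at -5.34 ± 0.55 (edgeR adjusted p = 7.14e-05), and Cmpk2, a mitochondrial nucleotide kinase, at -6.04 ± 0.48 (edgeR adjusted p = 1.87e-05).

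The GTPases that act on vacuolar pathogens and the factors that carry the interferon signal belong to the same list. Gbp2, Gbp3 and Gbp5, guanylate-binding proteins, fell, at -5.52 ± 0.45 (edgeR adjusted p = 1.93e-05), -6.06 ± 0.46 (edgeR adjusted p = 1.76e-05) and -6.71 ± 0.66 (edgeR adjusted p = 5.82e-05), with Gbp5 at 8.697, 15.5 and 22.96 CPM in libraries labelled KO LPS, against 1535, 818 and 2605 CPM in those labelled KO medium. Irgm1 and Iigp1, immunity-related GTPases, fell, at -3.297 ± 0.32 (edgeR adjusted p = 5.33e-05) and -5.95 ± 0.59 (edgeR adjusted p = 6.39e-05). Stat2, a carrier of the interferon signal, and Irf7, a factor for interferon genes, fell, at -1.92 ± 0.35 (edgeR adjusted p = 0.00221) and -2.64 ± 0.42 (edgeR adjusted p = 0.000994). Of the RNA sensors, Ifih1 (MDA5) fell, at -4.55 ± 0.36 (edgeR adjusted p = 1.77e-05) and Ddx58 (RIG-I) at -2.54 ± 0.34 (edgeR adjusted p = 0.000398). Usp18, which shuts off the interferon receptor, fell, at -4.77 ± 0.51 (edgeR adjusted p = 9.81e-05). The smallest falls of the list were those of Oas3, Bst2 and Oasl2, at -1.404 ± 0.44, -1.88 ± 0.33 and -1.88 ± 0.32.

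The effector molecules of activated macrophages were low in libraries labelled KO LPS. Of 16, 14 were called lower and 0 higher, with a median of -4.18. Nos2, encoding the inducible nitric oxide synthase (ENSMUSG00000020826, chr11:78920787-78960254, plus strand), lay at 4.51, 1.14 and 0.560 CPM in libraries labelled KO LPS, against 3858, 1633 and 2965 CPM in those labelled KO medium. This was the largest fall of any gene above the detection floor in both groups, with a log2 fold of -10.42 ± 0.99 (SE; edgeR quasi-likelihood test, Benjamini-Hochberg adjusted p = 5.12e-05). Acod1, which makes itaconate (ENSMUSG00000022126, chr14:103046977-103056573, plus strand), lay at 88.6, 32.5 and 38.4 CPM in libraries labelled KO LPS, against 7075, 6321 and 8217 CPM in those labelled KO medium. Acod1 fell with a log2 fold of -7.08 ± 0.71 (SE; edgeR quasi-likelihood test, Benjamini-Hochberg adjusted p = 6.73e-05). Slc7a2, which brings in arginine, Ass1, which regenerates it, and Gch1, which makes a cofactor of nitric oxide synthase, fell, at -6.54 ± 0.89 (edgeR adjusted p = 0.000423), -3.09 ± 0.57 (edgeR adjusted p = 0.00225) and -3.49 ± 0.60 (edgeR adjusted p = 0.00158). Sod2, the mitochondrial superoxide dismutase, lay at 169, 70.7 and 85.5 CPM in libraries labelled KO LPS, against 2859, 3553 and 2529 CPM in those labelled KO medium. Sod2 fell with a log2 fold of -4.78 ± 0.52 (SE; edgeR quasi-likelihood test, Benjamini-Hochberg adjusted p = 0.000103). Saa3, an acute-phase apolipoprotein, lay at 615, 16.8 and 65.2 CPM in libraries labelled KO LPS, against 28268, 36885 and 7963 CPM in those labelled KO medium. Its replicates varied widely in both groups without overlap, and the log2 fold was -6.71 ± 1.40 (edgeR adjusted p = 0.00433). Cybb, the catalytic subunit of the phagocyte oxidase, fell less, at -1.66 ± 0.29 (edgeR adjusted p = 0.00165). Marco, a scavenger receptor, and Plac8 were not called, Marco lying at 8.85, 108 and 195 CPM in libraries labelled KO LPS, against 13.3, 49.3 and 50.6 CPM in those labelled KO medium.

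Surface molecules through which macrophages address T cells fell together. Of 14, 12 were called lower and 0 higher, with a median of -3.15. Cd40 lay at 25.6, 9.18 and 12.7 CPM in libraries labelled KO LPS, against 1861, 2227 and 1444 CPM in those labelled KO medium. Cd40 fell with a log2 fold of -6.86 ± 0.85 (SE; edgeR quasi-likelihood test, Benjamini-Hochberg adjusted p = 0.000241). Cd86 and Cd80, the ligands of CD28, fell, at -3.91 ± 0.49 (edgeR adjusted p = 0.000244) and -2.58 ± 0.48 (edgeR adjusted p = 0.00229). Cd274, encoding the inhibitory ligand PD-L1, lay at 96.4, 92.6 and 101 CPM in libraries labelled KO LPS, against 1523, 1040.4 and 2639 CPM in those labelled KO medium. Cd274 fell with a log2 fold of -4.16 ± 0.39 (SE; edgeR quasi-likelihood test, Benjamini-Hochberg adjusted p = 4.68e-05). The B7 relatives Icosl and Cd276 were not called, at 0.67 ± 0.63 (edgeR adjusted p = 0.437) and 0.21 ± 0.79 (edgeR adjusted p = 0.862).

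Antigen presentation on MHC class I was lower in libraries labelled KO LPS, and presentation on class II was in general not called. Of 16 class I genes, 13 were called lower and 0 higher, with a median of -1.998. Tap1, the peptide transporter, lay at 86.2, 128 and 211 CPM in libraries labelled KO LPS, against 1011, 1067 and 952 CPM in those labelled KO medium, and Tapbp, the chaperone tapasin, at 403, 444 and 559 CPM in libraries labelled KO LPS, against 2459.8, 2452 and 2046 CPM in those labelled KO medium. Neither overlapped, and their log2 folds were -2.84 ± 0.40 (edgeR adjusted p = 0.000531) and -2.31 ± 0.31 (edgeR adjusted p = 0.000405). The immunoproteasome subunits Psmb8, Psmb9 and Psmb10 fell, at -2.63 ± 0.41 (edgeR adjusted p = 0.00091), -2.68 ± 0.40 (edgeR adjusted p = 0.000687) and -3.57 ± 0.63 (edgeR adjusted p = 0.00181), and B2m, the light chain of class I, at -1.69 ± 0.28 (edgeR adjusted p = 0.00133). Near-identical class I heavy chain genes share reads, so their values are uncertain. H2-K1 was called at -1.24 ± 0.31 (edgeR adjusted p = 0.0115), but its adjusted p was 0.208 by library size alone and 0.0546 without replicate 2 labelled KO LPS. Of 12 class II genes, 0 were called lower and 1 higher, H2-DMb2, which missed the threshold when 5 of the 6 libraries were left out in turn (3 higher and 0 lower by library size alone, 0 to 4 higher and 0 lower with 1 library left out, with 4 higher without replicate 1 labelled KO LPS). H2-Ab1 lay at 725, 486 and 812 CPM in libraries labelled KO LPS, against 1189, 1232 and 918 CPM in those labelled KO medium, and Cd74, the invariant chain, at 3614, 1629 and 2655 CPM in libraries labelled KO LPS, against 5579.7, 5834 and 3727 CPM in those labelled KO medium; neither was called, at -0.72 ± 0.33 (edgeR adjusted p = 0.113) and -0.94 ± 0.41 (edgeR adjusted p = 0.105). Ciita, the master switch of class II genes, was at 5.03, 43.9 and 65.5 CPM in libraries labelled KO LPS, against 5.18, 10.9 and 5.71 CPM in those labelled KO medium, with replicate 1 labelled KO LPS the lowest of the 6 libraries and replicates 2 and 3 the highest, and was not called. It was called higher without replicate 1 labelled KO LPS, at 2.92 (edgeR adjusted p = 0.014), by library size alone, at 3.16 (edgeR adjusted p = 0.018), and by DESeq2.

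NOD-like receptors and inflammasome genes fell for the most part, while Nlrc3 and a few relatives rose. Of 22, 15 were called lower and 3 higher (Nlrc3, Nlrx1 and Nlrp1b), with a median of -1.603. Nlrp3, the inflammasome sensor, lay at 37.5, 64.03 and 76.9 CPM in libraries labelled KO LPS, against 251, 173 and 554 CPM in those labelled KO medium. Nlrp3 fell with a log2 fold of -2.45 ± 0.58 (SE; edgeR quasi-likelihood test, Benjamini-Hochberg adjusted p = 0.00796). Casp1, the protease that matures IL-1 beta, and Casp4, the sensor of cytosolic LPS, fell, at -3.88 ± 0.61 (edgeR adjusted p = 0.000945) and -4.53 ± 0.49 (edgeR adjusted p = 9.78e-05). Casp4 lay at 33.7, 16.2 and 14.2 CPM in libraries labelled KO LPS, against 465, 506 and 507 CPM in those labelled KO medium. They were joined by Gsdmd, the pore protein of pyroptosis, at -1.74 ± 0.29 (edgeR adjusted p = 0.00121). Nlrc5, a relative of Nlrc3 that switches on class I genes, fell, at -2.64 ± 0.43 (edgeR adjusted p = 0.00116), and Nod2, a sensor of bacterial cell wall, at -2.81 ± 0.49 (edgeR adjusted p = 0.00164). Nlrx1, a mitochondrial member, lay at 10.3, 17.5 and 21.5 CPM in libraries labelled KO LPS, against 5.58, 5.04 and 6.81 CPM in those labelled KO medium, and was called higher with an edgeR adjusted p of 0.0144. Its adjusted p was 0.0616, 0.0584 and 0.057 without replicate 3 labelled KO LPS or replicate 1 or 2 labelled KO medium. Nlrp1b missed the threshold under 4 of the 6 left-out libraries and with the term for sex. Tmem173, encoding STING, and Nlrc4 were not called, at 0.197 ± 0.35 (edgeR adjusted p = 0.691) and -0.198 ± 0.46 (edgeR adjusted p = 0.772), while the DNA sensors Aim2 and Mb21d1 (cGAS) fell, at -2.54 ± 0.31 (edgeR adjusted p = 0.000201) and -1.47 ± 0.25 (edgeR adjusted p = 0.00159).

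Transcription factors were called in both directions, to be read against the 15.1% called higher and 15.3% called lower of all genes. Among macrophage factors 22.7% were higher and 36.4% lower, and among AP-1 and ATF factors 6.67% and 46.7%. Of 22 listed macrophage factors, 5 were called higher and 8 lower (8 higher and 4 lower by library size alone, 1 to 3 higher and 6 to 7 lower with 1 library left out, with 1 higher without replicate 2 labelled KO LPS). Cebpa, a myeloid differentiation factor (ENSMUSG00000034957, chr7:35119293-35121928, plus strand), lay at 162, 174 and 150.4 CPM in libraries labelled KO LPS, against 23.5, 22.6 and 12.4 CPM in those labelled KO medium. Cebpa rose with a log2 fold of 3.06 ± 0.36 (SE; edgeR quasi-likelihood test, Benjamini-Hochberg adjusted p = 0.000174). It was the sole member called higher that passed with every library left out; Irf4, Bhlhe40, Bhlhe41 and Egr2 missed the threshold under 4 or more of the 6. Its relative Cebpb, which drives inflammatory genes, lay at 68.8, 51.9 and 67.02 CPM in libraries labelled KO LPS, against 387, 395 and 184 CPM in those labelled KO medium. Cebpb fell with a log2 fold of -2.36 ± 0.46 (SE; edgeR quasi-likelihood test, Benjamini-Hochberg adjusted p = 0.00304). Spi1, encoding the macrophage master factor PU.1, fell, at -1.34 ± 0.29 (edgeR adjusted p = 0.0053), and Klf6 at -2.502 ± 0.33 (edgeR adjusted p = 0.000332). Stat3 fell, at -1.92 ± 0.45 (edgeR adjusted p = 0.0076), with an adjusted p of 0.0501 by library size alone. Of 15 AP-1 and ATF factors, 7 were called lower and 1 higher (4 higher and 5 lower by library size alone, 0 to 1 higher and 5 to 7 lower with 1 library left out). Batf2 lay at 6.08, 7.82 and 8.92 CPM in libraries labelled KO LPS, against 266, 242 and 166 CPM in those labelled KO medium. Batf2 fell with a log2 fold of -4.88 ± 0.46 (SE; edgeR quasi-likelihood test, Benjamini-Hochberg adjusted p = 5.12e-05), and Batf and Junb fell, at -3.17 ± 0.54 (edgeR adjusted p = 0.00145) and -2.14 ± 0.51 (edgeR adjusted p = 0.00833). Fos, an immediate early gene, was the member called higher, at 1.47 ± 0.39 (edgeR adjusted p = 0.0156), with adjusted p values of 0.0608, 0.0674 and 0.0704 without replicate 2 labelled KO LPS, 1 labelled KO medium or 2 labelled KO medium. Jun, Maff and Atf4 were not called.

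Genes of cell death were called in 1 direction. Of 22, 14 were called lower in libraries labelled KO LPS and 0 higher, with a median of -1.41 (9 lower and 2 higher by library size alone). The list mixes genes that promote and that block death. Mlkl, the effector of necroptosis, lay at 36.9, 19.9 and 30.7 CPM in libraries labelled KO LPS, against 381, 316 and 394 CPM in those labelled KO medium. Mlkl fell with a log2 fold of -3.64 ± 0.37 (SE; edgeR quasi-likelihood test, Benjamini-Hochberg adjusted p = 6.73e-05). Cflar, which blocks caspase 8, lay at 82.99, 74.7 and 76.8 CPM in libraries labelled KO LPS, against 773, 678 and 1094 CPM in those labelled KO medium. Cflar fell with a log2 fold of -3.44 ± 0.34 (SE; edgeR quasi-likelihood test, Benjamini-Hochberg adjusted p = 5.68e-05). Fas, a death receptor, and Ripk2, the kinase of NOD1 and NOD2, fell, at -3.59 ± 0.52 (edgeR adjusted p = 0.000612) and -3.47 ± 0.55 (edgeR adjusted p = 0.000949). Bcl2a1d, of a family of near-identical survival genes that can share reads, fell, at -4.81 ± 0.92 (edgeR adjusted p = 0.00267). Bax, Bid, Bcl2l1 and Bcl2 were not called.

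Glycolysis, named in the title of the series, showed a small called set among the enzymes and a mixed set among transporters and regulators. Of 19 enzymes, 5 were called lower and 1 higher in libraries labelled KO LPS, with a median of -0.59, against 15.3% and 15.1% of all genes; by library size alone 3 were called lower and 4 higher and the median was 0.15. The counts were 0 to 2 higher and 4 to 9 lower with 1 library left out, with 9 lower without replicate 1 labelled KO LPS. Hk3, a hexokinase of myeloid cells, lay at 321, 277 and 279 CPM in libraries labelled KO LPS, against 1068, 1004 and 927 CPM in those labelled KO medium, and its log2 fold was -1.77 ± 0.30 (edgeR adjusted p = 0.00134). Pfkp and Pfkl, subunits of phosphofructokinase, fell, at -2.13 ± 0.46 (edgeR adjusted p = 0.00512) and -1.52 ± 0.27 (edgeR adjusted p = 0.00172). Hk2, the hexokinase known to be induced by LPS, lay at 43.5, 67.3 and 72.5 CPM in libraries labelled KO LPS, against 135, 95.5 and 181 CPM in those labelled KO medium. It fell, at -1.17 ± 0.30 (edgeR adjusted p = 0.0128), with an adjusted p of 0.324 by library size alone. Ldha, which makes lactate, lay at 1332, 402 and 464 CPM in libraries labelled KO LPS, against 2007, 1892 and 1231 CPM in those labelled KO medium, and Pkm, the pyruvate kinase, at 3535, 1377 and 1727 CPM in libraries labelled KO LPS, against 3513, 3849 and 2642 CPM in those labelled KO medium. In both, replicate 1 labelled KO LPS lay among the libraries labelled KO medium and replicates 2 and 3 below them; neither was called, at -1.22 ± 0.57 (edgeR adjusted p = 0.125) and -0.59 ± 0.39 (edgeR adjusted p = 0.273), and Pkm changed sign by library size alone, to 0.15. Without replicate 1 labelled KO LPS both were called lower, Ldha at -1.98 (edgeR adjusted p = 0.0221) and Pkm at -1.100 (edgeR adjusted p = 0.0372). For Pgk1, Eno1 and Aldoa too, which were not called, replicates 2 and 3 lay below every library labelled KO medium and replicate 1 did not. Eno3, the enolase of muscle, was the enzyme called higher, at 1.27 ± 0.32 (edgeR adjusted p = 0.0109), and lay at 5.34, 5.41 and 4.65 CPM in libraries labelled KO LPS, against 1.81, 2.72 and 1.87 CPM in those labelled KO medium; its adjusted p was 0.0567 without replicate 1 labelled KO medium. Gapdh has many near-identical pseudogenes and its value is uncertain.

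Of 17 tested genes of glucose and lactate transport and of glycolysis regulation, 5 were called higher and 6 lower (7 higher and 6 lower by library size alone, 3 to 6 higher and 6 lower with 1 library left out, with 3 higher without replicate 2 or 3 labelled KO LPS or replicate 1 or 2 labelled KO medium). The main counts were 29.4% higher and 35.3% lower, against 15.1% and 15.3% of all genes. Slc2a1, the glucose transporter GLUT1 (ENSMUSG00000028645, chr4:119108711-119137983, plus strand), lay at 111, 38.1 and 37.1 CPM in libraries labelled KO LPS, against 426, 298 and 312 CPM in those labelled KO medium. Slc2a1 fell with a log2 fold of -2.48 ± 0.52 (SE; edgeR quasi-likelihood test, Benjamini-Hochberg adjusted p = 0.00467). Slc2a6, a transporter known to be induced in macrophages, lay at 25.1, 24.6 and 40.1 CPM in libraries labelled KO LPS, against 831, 1034 and 378 CPM in those labelled KO medium. Slc2a6 fell with a log2 fold of -4.64 ± 0.65 (SE; edgeR quasi-likelihood test, Benjamini-Hochberg adjusted p = 0.000501). Pfkfb3, whose product makes the activator of phosphofructokinase, lay at 38.6, 83.2 and 104 CPM in libraries labelled KO LPS, against 1144, 579.7 and 1266 CPM in those labelled KO medium. Pfkfb3 fell with a log2 fold of -3.73 ± 0.54 (SE; edgeR quasi-likelihood test, Benjamini-Hochberg adjusted p = 0.000628). The lactate carriers Slc16a1 and Slc16a3 fell, at -3.36 ± 0.65 (edgeR adjusted p = 0.00282) and -2.08 ± 0.44 (edgeR adjusted p = 0.00484). Pdk2, which closes the entry of pyruvate into mitochondria, lay at 4.87, 17.4 and 19.4 CPM in libraries labelled KO LPS, against 1.100, 2.02 and 0.766 CPM in those labelled KO medium. Pdk2 rose with a log2 fold of 3.43 ± 0.61 (SE; edgeR quasi-likelihood test, Benjamini-Hochberg adjusted p = 0.00178), while Pdk3 of the same family fell, at -1.73 ± 0.28 (edgeR adjusted p = 0.00105). Pfkfb4 and Slc2a8 rose by 1.53 ± 0.34 (edgeR adjusted p = 0.00585) and 1.69 ± 0.36 (edgeR adjusted p = 0.00504). Hif1a, the factor that supports glycolysis in LPS-treated macrophages, lay at 63.7, 52.3 and 65.9 CPM in libraries labelled KO LPS, against 347, 232 and 582 CPM in those labelled KO medium. It fell, at -2.67 ± 0.52 (edgeR adjusted p = 0.00288). Of the 20 genes listed as HIF factors and their other targets, 7 (35%) were called lower and 1 (5%) higher. Among all genes these shares were 15.3% and 15.1%. Library size alone left 5 lower calls, gave 2 higher ones and moved the median log2 fold from -0.98 to -0.23. DESeq2 called 10 lower, and leaving out 1 library gave 6 to 9. Epas1, the member called higher, missed the threshold without replicate 2 labelled KO LPS and without replicate 1 or 2 labelled KO medium. Its edgeR adjusted p there was 0.0794 to 0.0995. Ak4, Bnip3 and P4ha1, known HIF-1 targets, fell, at -3.54 ± 0.37 (edgeR adjusted p = 8.91e-05), -2.55 ± 0.41 (edgeR adjusted p = 0.00104) and -1.99 ± 0.31 (edgeR adjusted p = 0.0009), and Vegfa and Egln3 were not called.

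In the tricarboxylic acid cycle list, the isocitrate dehydrogenase genes Idh1 and Idh2 were higher in libraries labelled KO LPS. Of 22 genes, 6 were called higher and 1 lower, with a median of 0.35. By library size alone 16 were called higher and 0 lower. The main counts were 27.3% higher and 4.55% lower, against 15.1% and 15.3% of all genes. Idh1, the cytosolic form that yields NADPH (ENSMUSG00000025950, chr1:65158616-65186500, minus strand), lay at 189, 245 and 179.7 CPM in libraries labelled KO LPS, against 37.00, 39.1 and 42.6 CPM in those labelled KO medium. Its groups did not overlap, with a log2 fold of 2.37 ± 0.36 (SE; edgeR quasi-likelihood test, Benjamini-Hochberg adjusted p = 0.000808). Idh2, the mitochondrial form, lay at 53.97, 72.7 and 66.8 CPM in libraries labelled KO LPS, against 18.3, 17.8 and 18.6 CPM in those labelled KO medium. Idh2 rose with a log2 fold of 1.82 ± 0.25 (SE; edgeR quasi-likelihood test, Benjamini-Hochberg adjusted p = 0.000452). Aco1, an aconitase that also senses iron, rose by 1.54 ± 0.29 (edgeR adjusted p = 0.0025). Of the other isocitrate dehydrogenase genes, Idh3a and Idh3b were not called. Idh3a was called higher by library size alone and with the term for sex, and Idh3b by library size alone. Idh3g was called higher, with an edgeR adjusted p of 0.0551 without replicate 2 labelled KO LPS. Citrate synthase, Cs, was not called and overlapped, at 157, 169.8 and 175 CPM in libraries labelled KO LPS, against 174, 178 and 149 CPM in those labelled KO medium, and the succinate dehydrogenase genes Sdha, Sdhb, Sdhc and Sdhd were not called. In the pentose phosphate pathway 12.5% of genes were called higher and 12.5% lower, near the 15.1% and 15.3% of all genes. There Shpk, sedoheptulose kinase, was higher at 2.36, 4.31 and 5.86 CPM in libraries labelled KO LPS, against 0.314, 0.202 and 0.852 CPM in those labelled KO medium. Shpk rose with a log2 fold of 3.16 ± 0.60 (SE; edgeR quasi-likelihood test, Benjamini-Hochberg adjusted p = 0.00252), and Rpe was lower at -2.07 ± 0.32 (edgeR adjusted p = 0.000791); the other 6 of 8 genes were not called.

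In the PI3K, AKT and mTOR list, 8 of 25 genes were called higher and 4 lower (11 higher and 1 lower by library size alone, 5 to 8 higher and 3 to 4 lower with 1 library left out, with 5 higher without replicate 2 or 3 labelled KO LPS or replicate 3 labelled KO medium). These were 32% higher and 16% lower, against 15.1% and 15.3% of all genes, so the share called lower was near that of all genes. Regulatory subunits of PI3K were called in opposite directions. Akt1 lay at 254, 341 and 342 CPM in libraries labelled KO LPS, against 149, 132 and 143 CPM in those labelled KO medium. Akt1 rose with a log2 fold of 1.14 ± 0.21 (SE; edgeR quasi-likelihood test, Benjamini-Hochberg adjusted p = 0.00245). Akt2 was not called. Deptor, an inhibitor of mTOR, lay at 7.02, 15.5 and 13.3 CPM in libraries labelled KO LPS, against 1.57, 0.706 and 0.937 CPM in those labelled KO medium. Deptor rose with a log2 fold of 3.46 ± 0.48 (SE; edgeR quasi-likelihood test, Benjamini-Hochberg adjusted p = 0.000487). Tsc1, another brake on mTOR, and Mlst8, a subunit of its complexes, rose by 1.43 ± 0.36 (edgeR adjusted p = 0.0111) and 1.55 ± 0.28 (edgeR adjusted p = 0.00195), and Mtor and Rptor were not called. Pik3r2 rose by 1.99 ± 0.37 (edgeR adjusted p = 0.00221), and Pik3r5 fell, at -1.501 ± 0.37 (edgeR adjusted p = 0.0106), with an adjusted p of 0.108 by library size alone.

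Fatty acid synthesis was the pathway list with the largest share of members higher in libraries labelled KO LPS. Of 14 tested genes (15 listed), 10 were called higher and 0 lower, with a median of 1.79, and the counts were 12 and 0 by library size alone. Fasn, the fatty acid synthase (ENSMUSG00000025153, chr11:120805846-120824547, minus strand), lay at 58.5, 73.3 and 78.3 CPM in libraries labelled KO LPS, against 6.83, 8.77 and 7.24 CPM in those labelled KO medium. The replicates were tight in both groups, with a log2 fold of 3.201 ± 0.26 (SE; edgeR quasi-likelihood test, Benjamini-Hochberg adjusted p = 1.87e-05). Scd2, a desaturase, lay at 75.8, 93.7 and 132 CPM in libraries labelled KO LPS, against 12.7, 8.57 and 9.197 CPM in those labelled KO medium. Scd2 rose with a log2 fold of 3.305 ± 0.54 (SE; edgeR quasi-likelihood test, Benjamini-Hochberg adjusted p = 0.00109). Fads1, which makes long polyunsaturated fatty acids, lay at 59.7, 94.1 and 103 CPM in libraries labelled KO LPS, against 12.2, 9.17 and 8.601 CPM in those labelled KO medium. Fads1 rose with a log2 fold of 3.096 ± 0.48 (SE; edgeR quasi-likelihood test, Benjamini-Hochberg adjusted p = 0.000846). Elovl6 and Elovl5, which lengthen fatty acids, and Acsl3, which activates them, rose by 2.09 ± 0.47 (edgeR adjusted p = 0.00601), 1.66 ± 0.33 (edgeR adjusted p = 0.00328) and 1.92 ± 0.43 (edgeR adjusted p = 0.00669). Lpin1, a phosphatidate phosphatase and coregulator, lay at 7.13, 53.5 and 43.9 CPM in libraries labelled KO LPS, against 0.786, 0.504 and 0.255 CPM in those labelled KO medium. It had the largest rise of any gene above the floor in both groups, 6.05 ± 0.99 (edgeR adjusted p = 0.00116), with replicate 1 labelled KO LPS below replicates 2 and 3. Srebf1, the regulator of the pathway, Scd1, Elovl1 and Me1 were not called. Pparg, a lipid-sensing receptor that opposes inflammatory genes (ENSMUSG00000000440, chr6:115360951-115490399, plus strand), lay at 50.8, 49.5 and 40.3 CPM in libraries labelled KO LPS, against 4.87, 7.36 and 7.92 CPM in those labelled KO medium. Pparg rose with a log2 fold of 2.803 ± 0.30 (SE; edgeR quasi-likelihood test, Benjamini-Hochberg adjusted p = 9.13e-05).

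**Figure D3:**
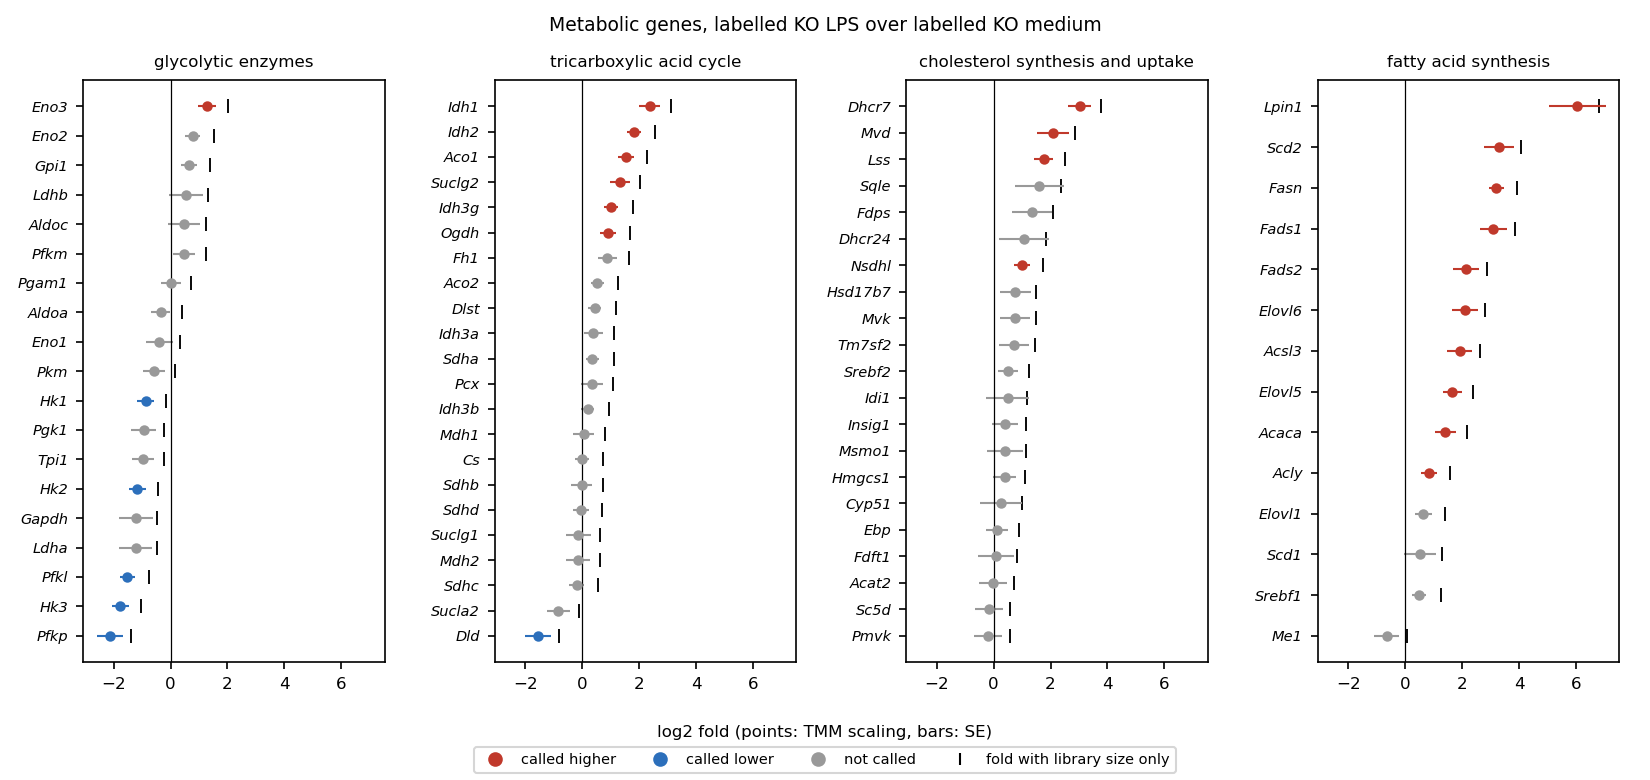
Log2 fold of labelled KO LPS over labelled KO medium, with its SE as a bar, for most members of the glycolysis, tricarboxylic acid cycle, cholesterol and fatty acid lists; red points are called higher, blue called lower and grey not called, and a black tick marks the fold by library size alone. Fasn (3.20), Scd2 (3.30), Dhcr7 (3.03) and Idh1 (2.37) lie to the right and Pfkp (-2.13) and Hk3 (-1.77) to the left, and every tick lies to the right of its point.

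Cholesterol synthesis genes were called higher about as often as genes overall. Of 23 tested genes, 4 were called higher and 0 lower, with a median of 0.49 (14 higher and a median of 1.17 by library size alone). These were 17.4% higher and 0.0% lower, against 15.1% and 15.3% of all genes, and the counts were 2 to 4 higher and 0 lower with 1 library left out, with 2 higher without replicate 1 labelled KO medium. Dhcr7, which makes cholesterol from its last precursor (ENSMUSG00000058454, chr7:143823145-143848410, plus strand), lay at 25.3, 33.9 and 30.9 CPM in libraries labelled KO LPS, against 5.03, 2.72 and 3.24 CPM in those labelled KO medium. Dhcr7 rose with a log2 fold of 3.03 ± 0.41 (SE; edgeR quasi-likelihood test, Benjamini-Hochberg adjusted p = 0.000392). Lss, which closes the sterol rings, rose by 1.77 ± 0.34 (edgeR adjusted p = 0.00267). On the side of cholesterol export and storage, 4 of 15 genes were called higher and 1 lower. This was 26.7% and 6.67%, against 15.1% and 15.3% of all genes. Npc1, which lets cholesterol out of lysosomes, lay at 186, 356 and 318 CPM in libraries labelled KO LPS, against 66.9, 54.9 and 72.6 CPM in those labelled KO medium. Npc1 rose with a log2 fold of 2.14 ± 0.43 (SE; edgeR quasi-likelihood test, Benjamini-Hochberg adjusted p = 0.00337), and Lipa, the acid lipase, by 1.48 ± 0.35 (edgeR adjusted p = 0.00794). Rxra, the partner of LXR and PPAR receptors, rose by 3.22 ± 0.64 (edgeR adjusted p = 0.0034). The exporters Abca1 and Abcg1 and the apolipoprotein Apoe were not called. Apoe ranked 3 among all genes per length in both groups, at 12628 FPKM in libraries labelled KO LPS and 7331 FPKM in those labelled KO medium.

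Lysosomal genes were in the main not called. Of 30, 5 were called higher and 2 lower, with a median of 0.12, but 18 higher and 0 lower by library size alone and 4 to 8 higher and 1 to 3 lower with 1 library left out, with 8 higher without replicate 1 labelled KO LPS. The main counts were 16.7% higher and 6.67% lower, against 15.1% and 15.3% of all genes. Tfeb, the factor that drives lysosome genes, lay at 51.1, 61.7 and 51.1 CPM in libraries labelled KO LPS, against 18.6, 22.4 and 11.1 CPM in those labelled KO medium. Tfeb rose with a log2 fold of 1.65 ± 0.40 (SE; edgeR quasi-likelihood test, Benjamini-Hochberg adjusted p = 0.00912). Lamp2, a membrane protein of lysosomes, fell, at -1.197 ± 0.25 (edgeR adjusted p = 0.00442), with an adjusted p of 0.203 by library size alone. The cathepsins Ctsb, Ctsd and Ctss were not called. Ctsl was not called either, and lay at 6929, 782 and 1272 CPM in libraries labelled KO LPS, against 4933, 5678 and 4041 CPM in those labelled KO medium, with replicate 1 labelled KO LPS above both other replicates of its group, and it was called lower without that replicate, at -2.25 (edgeR adjusted p = 0.0179). Among scavenger and Fc receptors, 3 of 22 were called higher and 4 lower (9 higher and 3 lower by library size alone, 1 to 5 higher and 3 to 5 lower with 1 library left out, with 5 higher without replicate 1 labelled KO LPS). These were 13.6% higher and 18.2% lower, near the 15.1% and 15.3% of all genes. The lower ones were Fc receptors. Fcgr1, the high-affinity receptor for IgG, lay at 506, 296 and 561 CPM in libraries labelled KO LPS, against 2177, 1991 and 1927 CPM in those labelled KO medium. Fcgr1 fell with a log2 fold of -2.16 ± 0.31 (SE; edgeR quasi-likelihood test, Benjamini-Hochberg adjusted p = 0.000531), and Fcgr4 and the inhibitory Fcgr2b fell, at -2.59 ± 0.39 (edgeR adjusted p = 0.000716) and -2.46 ± 0.49 (edgeR adjusted p = 0.00325). Scarb1, a receptor for lipoproteins, rose by 1.902 ± 0.30 (edgeR adjusted p = 0.000907). Mertk, Axl and Trem2, which serve the uptake of dead cells and lipids, were not called.

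Markers of alternative activation were called in both directions, 33.3% higher and 16.7% lower, against 15.1% and 15.3% of all genes. Of 18 tested, 6 were called higher and 3 lower (8 higher and 2 lower by library size alone, 1 to 5 higher and 2 to 5 lower with 1 library left out, with 1 higher without replicate 1 labelled KO medium, with 5 lower without replicate 1 labelled KO LPS). Arg1, which competes for arginine with nitric oxide synthase, lay at 126, 0.527 and 4.05 CPM in libraries labelled KO LPS, against 32.5, 23.2 and 138 CPM in those labelled KO medium. Replicates were spread over 2 orders of magnitude within libraries labelled KO LPS, and its log2 fold was -0.58 ± 1.33 (edgeR adjusted p = 0.767), but it was called lower without replicate 1 labelled KO LPS, at -4.81 (edgeR adjusted p = 0.0106). Mrc1, the mannose receptor, lay at 245, 354 and 342 CPM in libraries labelled KO LPS, against 104, 85.1 and 274 CPM in those labelled KO medium, overlapped and was not called, at 1.02 ± 0.44 (edgeR adjusted p = 0.0998). It was called higher by library size alone, at 1.72 (edgeR adjusted p = 0.0162), and without replicate 3 labelled KO medium, at 1.71 (edgeR adjusted p = 0.0101). Il4ra, the receptor chain for IL-4, lay at 145, 167 and 244 CPM in libraries labelled KO LPS, against 2212, 1505 and 1270.4 CPM in those labelled KO medium. Il4ra fell with a log2 fold of -3.17 ± 0.33 (SE; edgeR quasi-likelihood test, Benjamini-Hochberg adjusted p = 8.67e-05). Mgl2, a lectin of this programme, was called higher, at 1.73, 15.4 and 23.9 CPM in libraries labelled KO LPS, against 0.864, 0.504 and 2.04 CPM in those labelled KO medium. Mgl2 rose with a log2 fold of 3.57 ± 0.91 (SE; edgeR quasi-likelihood test, Benjamini-Hochberg adjusted p = 0.0123); its adjusted p was 0.159 with the term for sex and 0.0524 without replicate 1 labelled KO medium.

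Iron, antioxidant and amino acid response genes were called in both directions, in shares to be read against the 15.1% called higher and 15.3% called lower of all genes. Of 13 iron genes, 3 were called higher and 5 lower, that is 23.1% higher and 38.5% lower (5 higher and 3 lower by library size alone, 1 to 3 higher and 3 to 6 lower with 1 library left out, with 1 higher without replicate 1 or 2 labelled KO medium, with 3 lower without replicate 2 or 3 labelled KO LPS or replicate 1 labelled KO medium). Slc40a1, the iron exporter ferroportin, lay at 19.3, 285 and 182 CPM in libraries labelled KO LPS, against 5.42, 4.74 and 12.2 CPM in those labelled KO medium. Its log2 fold was 4.44 ± 1.19 (edgeR adjusted p = 0.0153), with replicate 1 labelled KO LPS nearest to the other group and adjusted p values of 0.0657 and 0.0624 without replicate 1 or 2 labelled KO medium. Slc39a14, an importer of iron and zinc, and Cp, which oxidises iron for export, fell, at -2.57 ± 0.50 (edgeR adjusted p = 0.00295) and -3.69 ± 0.90 (edgeR adjusted p = 0.0101). Fth1, the ferritin heavy chain and the gene with the highest FPKM in both groups (27732 in libraries labelled KO LPS, 48648 in those labelled KO medium), has many pseudogenes and is uncertain. Of 17 NRF2 and antioxidant genes, 2 were called higher and 4 lower, that is 11.8% higher and 23.5% lower (4 higher and 3 lower by library size alone, 1 to 2 higher and 2 to 5 lower with 1 library left out, with 2 lower without replicate 2 or 3 labelled KO LPS or replicate 2 labelled KO medium). Gclc, which starts glutathione synthesis, rose by 2.31 ± 0.48 (edgeR adjusted p = 0.0042), and Slc7a11, which brings in cystine for it, fell, at -2.78 ± 0.61 (edgeR adjusted p = 0.00573) and lay at 49.9, 17.5 and 10.1 CPM in libraries labelled KO LPS, against 105, 174 and 252 CPM in those labelled KO medium. Hmox1 and Nfe2l2 were not called.

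Of 19 tested genes of the amino acid response, 3 were called higher and 4 lower, that is 15.8% higher and 21.1% lower (8 higher and 3 lower by library size alone, 2 to 3 higher and 2 to 5 lower with 1 library left out, with 2 lower without replicate 2 labelled KO LPS). Nupr1, a stress-induced chromatin protein, lay at 28.8, 12.8 and 18.5 CPM in libraries labelled KO LPS, against 774, 528 and 431 CPM in those labelled KO medium. Nupr1 fell with a log2 fold of -4.85 ± 0.47 (SE; edgeR quasi-likelihood test, Benjamini-Hochberg adjusted p = 5.79e-05). Shmt2, the mitochondrial serine enzyme, rose by 1.59 ± 0.23 (edgeR adjusted p = 0.000648), and Atf5 by 1.52 ± 0.27 (edgeR adjusted p = 0.00196), while Ddit3 and Trib3 were not called. In the ER chaperone list, 3 of 18 were called higher and 1 lower (10 higher and 0 lower by library size alone, 1 to 3 higher and 0 to 3 lower with 1 library left out, with 1 higher without replicate 2 or 3 labelled KO LPS or replicate 2 labelled KO medium). The main counts were 16.7% higher and 5.56% lower, against 15.1% and 15.3% of all genes. Herpud1, a degradation factor of the ER, rose by 2.02 ± 0.46 (edgeR adjusted p = 0.00686) with an adjusted p of 0.0519 under the term for sex.

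Genes of prostaglandin and leukotriene synthesis were called in both directions, 33.3% higher and 26.7% lower, against 15.1% and 15.3% of all genes. Of 15 genes, 5 were called higher and 4 lower (7 higher and 3 lower by library size alone, 3 to 5 higher and 3 to 4 lower with 1 library left out, with 3 higher without replicate 3 labelled KO LPS or replicate 2 labelled KO medium). Ptgs2, the inducible cyclooxygenase, lay at 30.8, 8.13 and 8.49 CPM in libraries labelled KO LPS, against 519, 701 and 1329.6 CPM in those labelled KO medium. Ptgs2 fell with a log2 fold of -5.75 ± 0.99 (SE; edgeR quasi-likelihood test, Benjamini-Hochberg adjusted p = 0.00149). Ptges, the synthase of prostaglandin E2 that works with it, lay at 10.5, 4.17 and 4.01 CPM in libraries labelled KO LPS, against 614, 592 and 515 CPM in those labelled KO medium. Ptges fell with a log2 fold of -6.53 ± 0.56 (SE; edgeR quasi-likelihood test, Benjamini-Hochberg adjusted p = 2.81e-05). Pla2g4a, which frees their substrate, fell, at -3.28 ± 0.57 (edgeR adjusted p = 0.00165). Ptgs1, the constitutive cyclooxygenase, was higher, at 29.8, 67.4 and 81.1 CPM in libraries labelled KO LPS, against 6.44, 10.7 and 16.3 CPM in those labelled KO medium. Ptgs1 rose with a log2 fold of 2.42 ± 0.51 (SE; edgeR quasi-likelihood test, Benjamini-Hochberg adjusted p = 0.00467), and Tbxas1, the thromboxane synthase, and Lta4h, of leukotriene synthesis, rose by 1.32 ± 0.30 (edgeR adjusted p = 0.0064) and 1.41 ± 0.25 (edgeR adjusted p = 0.00172). Of 17 matrix genes, 6 were called lower and 0 higher (5 higher and 5 lower by library size alone, 0 higher and 4 to 5 lower with 1 library left out). The share called lower was 35.3%, against 15.3% of all genes. Sdc4, a surface proteoglycan, lay at 80.5, 63.9 and 76.4 CPM in libraries labelled KO LPS, against 2719, 2699.8 and 2112 CPM in those labelled KO medium. Sdc4 fell with a log2 fold of -5.09 ± 0.69 (SE; edgeR quasi-likelihood test, Benjamini-Hochberg adjusted p = 0.000413), and the collagenase Mmp13 and the membrane protease Mmp14 fell, at -5.93 ± 1.38 (edgeR adjusted p = 0.00774) and -2.53 ± 0.51 (edgeR adjusted p = 0.00377). Mmp12, the macrophage elastase, was not called and lay at 3249.6, 396 and 379.6 CPM in libraries labelled KO LPS, against 3868, 4655 and 1734 CPM in those labelled KO medium, replicate 1 labelled KO LPS being in the range of the other group.

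Several genes of DNA replication were higher in libraries labelled KO LPS. Of 32 cell cycle genes, 10 were called higher and 2 lower, with a median of 0.67 (20 and 0 by library size alone). This was 31.25% higher and 6.25% lower, against 15.1% and 15.3% of all genes. The counts were 5 to 10 higher and 1 to 2 lower with 1 library left out, with 5 higher without replicate 3 labelled KO LPS or replicate 1 labelled KO medium. Mcm2, a subunit of the replicative helicase, lay at 36.9, 24.1 and 35.6 CPM in libraries labelled KO LPS, against 4.71, 3.93 and 6.56 CPM in those labelled KO medium. Mcm2 rose with a log2 fold of 2.66 ± 0.43 (SE; edgeR quasi-likelihood test, Benjamini-Hochberg adjusted p = 0.00103), and Mcm7 and Mcm3 rose by 2.12 ± 0.39 (edgeR adjusted p = 0.0022) and 1.83 ± 0.32 (edgeR adjusted p = 0.00161). Cdk2, the kinase of S phase entry, rose by 1.99 ± 0.39 (edgeR adjusted p = 0.00313). Mki67, the common proliferation marker, lay at 25.4, 32.4 and 28.3 CPM in libraries labelled KO LPS, against 35.5, 51.4 and 78.1 CPM in those labelled KO medium and was not called, nor were Top2a, Ccnb1 and Cdk1. Of the mitotic genes Bub1b rose by 1.85 ± 0.43 (edgeR adjusted p = 0.00778), while the calls of Aurkb and Cdc20 as higher were lost under 4 of the 6 left-out libraries and Cenpe was called lower, except by library size alone. Of 44 cytosolic ribosomal protein genes 0 were called by edgeR and 1 by DESeq2, with a median of -0.402. At an unadjusted edgeR p under 0.05 there were 2, Rps24 and Rpl24, both lower. By library size alone the median was 0.369, and 2 genes, Rpl15 and Rplp0, were called higher and 0 lower. Cytosolic ribosomal protein genes have many pseudogenes. In the respiratory chain list 6.67% were called lower and 0% higher, against 15.3% and 15.1% of all genes. Respiratory chain genes had 2 of 30 called lower and 0 higher (7 higher and 1 lower by library size alone, 0 higher and 1 to 2 lower with 1 library left out, and a median of 0.21 in place of -0.55 by library size alone), among them Cycs, cytochrome c, at 76.9, 27.4 and 30.8 CPM in libraries labelled KO LPS, against 319, 299.7 and 213 CPM in those labelled KO medium. Cycs fell with a log2 fold of -2.62 ± 0.57 (SE; edgeR quasi-likelihood test, Benjamini-Hochberg adjusted p = 0.00523).

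Summed markers of several other marrow cells, among them those of neutrophils, of B cells and of mast cells or basophils, were higher in replicates 2 and 3 labelled KO LPS than in replicate 1 of that group. The summed level of the neutrophil and granule markers was 1138, 5084 and 6344 CPM in libraries labelled KO LPS, against 3166, 3043 and 5339.9 CPM in those labelled KO medium. Of 14 tested (15 listed), 5 were called higher and 1 lower, and Mpo, the myeloperoxidase of neutrophil precursors, lay at 10.8, 248 and 582 CPM in libraries labelled KO LPS, against 9.43, 10.2 and 42.2 CPM in those labelled KO medium, with an adjusted p of 0.536 under the term for sex, in place of 0.0356. The B cell markers summed to 113, 322 and 886 CPM in libraries labelled KO LPS, against 118, 71.9 and 163 CPM in those labelled KO medium, and Cd79b, a chain of the B cell receptor, lay at 4.72, 33.97 and 36.2 CPM in libraries labelled KO LPS, against 1.18, 2.62 and 2.73 CPM in those labelled KO medium. Cd79b rose with a log2 fold of 3.52 ± 0.69 (SE; edgeR quasi-likelihood test, Benjamini-Hochberg adjusted p = 0.003). The mast cell and basophil markers summed to 13.2, 144 and 300.2 CPM in libraries labelled KO LPS, against 129, 101 and 188 CPM in those labelled KO medium, and the megakaryocyte and platelet markers to 667, 513 and 746 CPM in libraries labelled KO LPS, against 239.9, 380.3 and 689.9 CPM in those labelled KO medium. In the mast cell and basophil sum, Prss34 lay at 1.99, 68.7 and 154 CPM and Mcpt8 at 1.47, 19.6 and 57.5 CPM in libraries labelled KO LPS. Those labelled KO medium held 3.93, 5.14 and 11.4 CPM of Prss34 and 2.75, 2.12 and 5.28 CPM of Mcpt8. Prss34 and Mcpt8 were called higher, and 1 of the other tested members of that list was called lower. The T and NK markers summed to 11.6, 134 and 187 CPM in libraries labelled KO LPS, against 56.3, 43.2 and 79.8 CPM in those labelled KO medium, the dendritic cell markers to 5.34, 29.6 and 31.8 CPM in libraries labelled KO LPS, against 8.25, 10.9 and 9.79 CPM in those labelled KO medium and the stromal markers to 128, 54.4 and 83.8 CPM in libraries labelled KO LPS, against 125, 113 and 334 CPM in those labelled KO medium. In the T and NK sum, Cd4 lay at 8.23, 121 and 166 CPM in libraries labelled KO LPS, against 7.86, 5.65 and 61.7 CPM in those labelled KO medium. Cd3d, Cd3e and Klrb1c were at or under the floor in 1 of the groups. Of 9 tested T and NK markers, 0 were called higher and 1, Lck, lower. The Lck call was lost with the term for sex (edgeR adjusted p = 0.0538) and without replicate 2 labelled KO LPS (0.0615) or replicate 1 labelled KO medium (0.0525). Car1 of the red cell lineage was at 0 in all 6 libraries, and Alas2 of that lineage at most 0.157 CPM. Xcr1 of dendritic cells lay at most at 0.302 CPM and Cldn5 of endothelium at most at 0.388 CPM. The part of these cells in the differences above was not tested. The calls for Mpo, Elane, Prtn3, Prss34, Mcpt8, Gp1ba, Gp9, Itga2b and Epor were lost with the term for sex and without replicate 3 labelled KO LPS or replicate 1 or 2 labelled KO medium, and all of these but Elane without replicate 2 labelled KO LPS. Those for Cd79a and Retnlg passed each time.

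**Figure D4:**
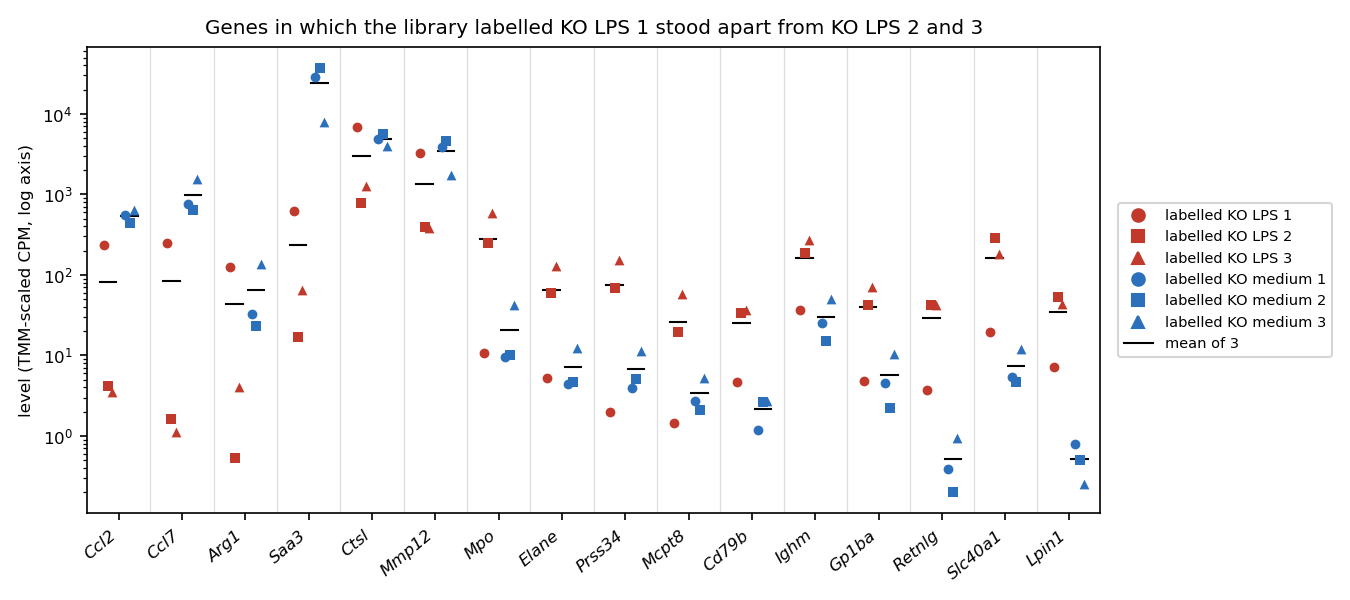
Level of 16 genes in the 3 libraries labelled KO LPS (red, left) and the 3 labelled KO medium (blue, right), in TMM-scaled CPM on a log axis; the genes were chosen after their values were seen to show where replicate 1 labelled KO LPS stood apart. For Ccl2, Ccl7, Arg1, Saa3, Ctsl and Mmp12 replicate 1 lies above replicates 2 and 3, and for Mpo, Elane, Prss34, Mcpt8, Cd79b, Ighm, Gp1ba, Retnlg, Slc40a1 and Lpin1 it lies below them.

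The largest changes included genes outside the lists. Cd69, an early activation antigen of leukocytes, lay at 3.25, 2.68 and 1.77 CPM in libraries labelled KO LPS, against 832, 607 and 1124 CPM in those labelled KO medium. Cd69 fell with a log2 fold of -8.38 ± 0.66 (SE; edgeR quasi-likelihood test, Benjamini-Hochberg adjusted p = 1.77e-05). Lhx2, a homeobox factor, lay at 0.262, 0.264 and 0.129 CPM in libraries labelled KO LPS, against 70.6, 40.9 and 65.5 CPM in those labelled KO medium, and Lipg, an endothelial lipase, at 0.472, 0.703 and 0.948 CPM in libraries labelled KO LPS, against 166, 90.3 and 289 CPM in those labelled KO medium. Both were under 1 CPM in every library labelled KO LPS, with log2 folds of -8.04 ± 0.58 (edgeR adjusted p = 1.45e-05) and -7.98 ± 0.58 (edgeR adjusted p = 1.45e-05). Il19, of the IL-10 family, lay at 0.838, 0.0439 and 0.0431 CPM in libraries labelled KO LPS, against 204, 92.3 and 87.9 CPM in those labelled KO medium, with replicates 2 and 3 labelled KO LPS at 1 count each. Among the rises, Sgsh, a lysosomal sulfatase, lay at 16.8, 111 and 113 CPM in libraries labelled KO LPS, against 2.59, 1.51 and 2.04 CPM in those labelled KO medium. Sgsh rose with a log2 fold of 5.28 ± 0.86 (SE; edgeR quasi-likelihood test, Benjamini-Hochberg adjusted p = 0.00112). Sesn1, a stress protein that restrains mTOR, lay at 64.2, 165 and 145 CPM in libraries labelled KO LPS, against 2.99, 2.82 and 4.002 CPM in those labelled KO medium. Sesn1 rose with a log2 fold of 5.25 ± 0.90 (SE; edgeR quasi-likelihood test, Benjamini-Hochberg adjusted p = 0.0015). St6gal1, which adds sialic acid to glycoproteins, lay at 11.5, 79.9 and 90.4 CPM in libraries labelled KO LPS, against 1.81, 1.71 and 1.36 CPM in those labelled KO medium. St6gal1 rose with a log2 fold of 5.21 ± 0.80 (SE; edgeR quasi-likelihood test, Benjamini-Hochberg adjusted p = 0.00082). Arhgap19, Tns1, Eef2k and Ldlrad3 rose by 5.78 ± 1.24 (edgeR adjusted p = 0.00504), 5.06 ± 0.94 (edgeR adjusted p = 0.00234), 5.04 ± 0.99 (edgeR adjusted p = 0.00311) and 5.01 ± 0.76 (edgeR adjusted p = 0.000745). In each of these rises replicate 1 labelled KO LPS was the lowest of its group and still above every library labelled KO medium.

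Several genes were detected in 1 group only or nearly so, and are given as levels. Il1f6, an IL-1 family cytokine, lay at 0, 0 and 0.0431 CPM in libraries labelled KO LPS, against 22.1, 20.5 and 11.2 CPM in those labelled KO medium. Shisa3 lay at 0.0524, 0 and 0 CPM in libraries labelled KO LPS, against 15.7, 24.4 and 11.2 CPM in those labelled KO medium, and Tnfaip8l3 at 0.157, 0.0439 and 0 CPM in libraries labelled KO LPS, against 14.7, 11.1 and 16.2 CPM in those labelled KO medium. Calcr, the calcitonin receptor of osteoclasts, was at 0 in all 3 libraries labelled KO LPS, against 3.299, 4.64 and 1.53 CPM in those labelled KO medium, at least 22.8-fold lower against the floor of 3 counts per library. Sprr2d, at 0 in the same libraries, was at least 16.5-fold lower. On the higher side, Lpar5, a receptor for lysophosphatidic acid, lay at 2.04, 18.1 and 12.96 CPM in libraries labelled KO LPS, against 0, 0 and 0.170 CPM in those labelled KO medium, and Nat8l at 0.734, 23.1 and 12.7 CPM in libraries labelled KO LPS, against 0, 0 and 0.341 CPM in those labelled KO medium. Vpreb3 of the B cell lineage was at 0 in all libraries labelled KO medium and at least 3.96-fold higher in those labelled KO LPS.

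Set against the WT libraries, the difference between the libraries labelled KO LPS and KO medium ran the opposite way gene by gene. In WT, LPS against medium gave 2526 calls (18.3% of genes tested; 11.9% higher and 6.46% lower), and 2147 genes were called in both comparisons, 51.3% of the KO calls and 85.0% of the WT calls. All 2147 had opposite signs: 727 were higher in libraries labelled KO LPS and lower in WT LPS, and 1420 were lower in libraries labelled KO LPS and higher in WT LPS. The same sign was found in 0 genes by edgeR and in 1 of 2898 by DESeq2, and at an unadjusted p under 0.05 in both comparisons 2 genes had the same sign and 3501 the opposite. These comparisons share no library. Across the 13773 genes, which are not independent replicates, the log2 folds had a Pearson r of -0.837, and 10792 genes (78.4%) had opposite signs. The test of the difference itself, KO response minus WT response, called 5657 genes (41.1%), 2825 higher (20.5%) and 2832 lower (20.6%).

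**Figure D5:**
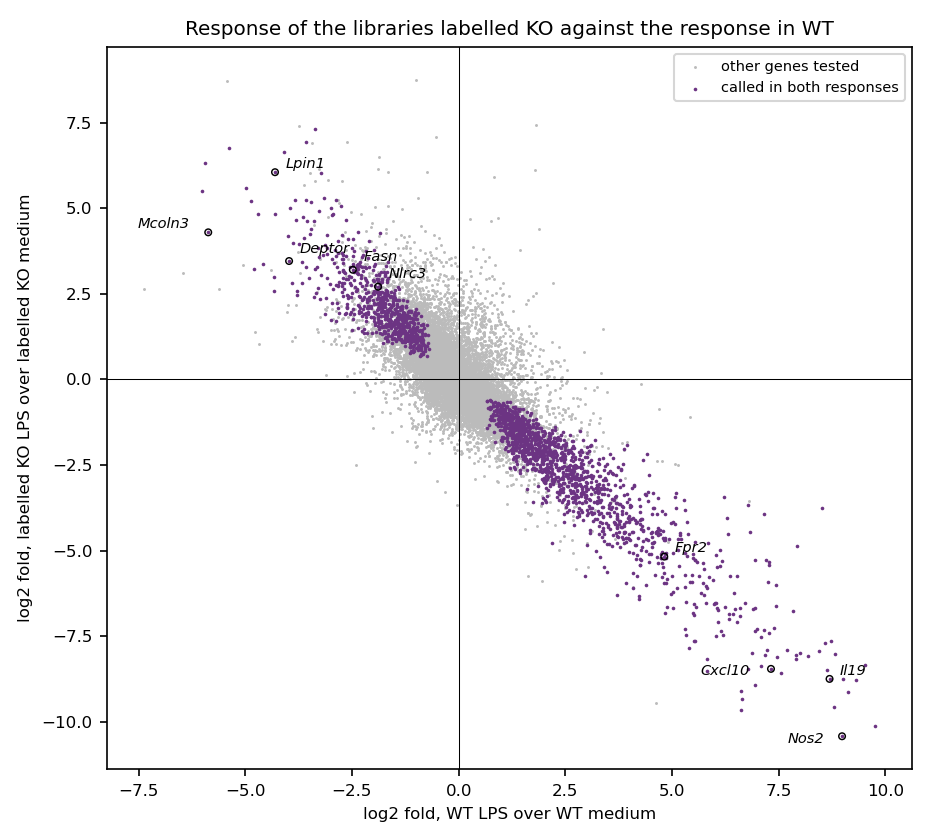
Log2 fold of LPS over medium for each of the 13773 genes tested, in the libraries labelled KO on the vertical axis and in WT on the horizontal axis; purple points are the 2147 genes called in both. The points run along the falling diagonal (Pearson r -0.837), and all purple points lie in the quadrants of opposite sign.

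Genes described above illustrate this. Nos2 changed at -10.42 ± 0.99 in the libraries labelled KO and by 8.98 ± 0.93 in WT, a difference of -19.404 ± 1.36 (edgeR adjusted p = 1.67e-06). Il6 changed at -7.900 ± 1.19 in the libraries labelled KO and by 7.23 ± 1.15 in WT, Cxcl10 at -8.45 ± 0.71 in KO and by 7.32 ± 0.68 in WT, and Ifit2 at -5.47 ± 0.39 in KO and by 4.79 ± 0.38 in WT. The differences were -15.13 ± 1.65 (edgeR adjusted p = 3.27e-05), -15.77 ± 0.98 (edgeR adjusted p = 7.94e-07) and -10.27 ± 0.54 (edgeR adjusted p = 3.55e-07). In the other direction, Fasn changed by 3.201 ± 0.26 in the libraries labelled KO and -2.48 ± 0.25 in WT, a difference of 5.68 ± 0.36 (edgeR adjusted p = 7.94e-07), and Pparg by 2.803 ± 0.30 and -2.69 ± 0.29, a difference of 5.49 ± 0.42 (edgeR adjusted p = 2.74e-06). Nlrc3 changed by 2.71 ± 0.56 in the libraries labelled KO and -1.89 ± 0.53 in WT, a difference of 4.59 ± 0.77 (edgeR adjusted p = 0.000589). The summed level of the interferon-stimulated genes was 4955, 3819 and 6149 CPM in libraries labelled KO LPS and 76197, 65140.3 and 93544 CPM in those labelled KO medium, against 73200.0, 55395 and 75985 CPM in WT LPS and 5158, 5407 and 3791 CPM in WT medium. A test of the sum of both responses, which asks whether they differ in size once the sign is set aside, was chosen after the data were seen. It called 0 genes by edgeR and 0 by DESeq2, with 553 and 720 genes at an unadjusted p under 0.05, a smallest adjusted p of 0.896 by edgeR and a median SE of 0.61 log2 units. Missing the threshold does not show that the sizes are alike.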

How the data were processed

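RNA was sequenced from 12 macrophage libraries, and the deposited tables hold, per gene, whole-number counts that the authors had not normalized and FPKM values that the authors computed from them. The genome build was mm10, per the submitters' processing notes. For aligner, counting tool, strand setting and annotation nothing is given in the sources used here, and the labels name both a TruSeq and a KAPA Stranded kit. Values of overlapping, antisense or near-identical genes are therefore uncertain. The deposited FPKM equalled the counts scaled by library total and gene length to within 0.00816% (4705 genes checked), and are used only to compare genes within a group. Of 54446 gene identifiers, 54409 matched the GENCODE M21 annotation (GRCm38) and 37 did not; 27384 had a count of 0 in all 12 libraries and 93 symbols stood for more than 1 identifier. Positions count from 1.

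Samples were grouped by their labels. Counts were fitted with edgeR 4.0.16 in R 4.3.3 (glmQLFit, glmQLFTest) over all 12 libraries with 1 mean per group, TMM factors and filterByExpr, which kept 13773 genes. P-values were adjusted by the Benjamini-Hochberg method with a threshold of 0.05. TMM factors were 1.20 to 1.24 for the libraries labelled KO LPS and 0.703 to 0.791 for those labelled KO medium, so printed CPM are divided by them. The floor is 3 counts per library and covers counting error only. The test was also run on simulated counts, and the outcome of that run is not given here. The alternatives were DESeq2 1.42.0, library size alone, other filters, a replicate block, a term for sex, only the 6 libraries labelled KO, and each library left out. The sum of both responses was added after the data were seen.

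The gene lists and named genes were chosen with earlier results of these data known. Named genes were Nlrc3, the 12 largest rises and 12 largest falls without overlap between groups and with a mean of 5 CPM or more where higher, up to 2 called members of each list in each direction with the smallest p, a fixed set, and the 6 largest differences of each sign between the responses; other list members are named with their values as members. Promoter windows come from RefSeq (GRCm38.p6), and 9971 of 13773 tested genes had one. Results for some genes are not reported here, though the counts over each list include them.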

Additional observations from a re-analysis of the deposited data

Results flagged for a closer look

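The response of the libraries labelled KO (LPS over medium) differed from that of WT in 5657 genes by the edgeR contrast of both responses, a test of the difference itself. Whether the labels of the KO LPS and KO medium libraries were exchanged was not tested, and an exchange would turn the sign of the KO response in each value below. The differences below are the libraries labelled KO minus WT, on the log2 scale. Among effectors and cytokines the difference was -19.40 for Nos2, the inducible nitric oxide synthase, -17.44 for Il19 and -16.38 for Ccl5. In the other direction it was 10.35 for Lpin1, a phosphatidate phosphatase, 10.09 for St6gal1, a sialyltransferase, and 10.16 for Mcoln3, a lysosomal channel. Genes near the detection floor in at least 1 group had fitted differences of -18.35 (Shisa3), -17.84 (Sprr2d), -17.75 (Il23r), 11.51 (Lrrc14b), 11.15 (Lpar5) and 10.73 (Nat8l). Those values depend on the prior count of the fit and are no bound.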

How the results depend on the processing

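With 3 libraries a group, the number of genes called depends on which libraries and which scaling are used. Of the 168 named genes, 168 kept their result under DESeq2, 152 by library size alone, 147 with the term for sex, 164 with no filter on low counts and 142 with the replicate block, which lost 26 calls. Without a library labelled KO LPS or KO medium, 138 to 162 kept their result. By library size alone 6491 genes were called, 5314 higher and 1177 lower, the difference of responses had 6595 higher and 1538 lower, and 3652 genes were called in both responses with opposite sign. DESeq2 found 1 gene called in both responses with the same sign, and with no filter on low counts the sum of responses called 1 gene, which was higher. Leaving out 1 library gave 2543 to 5095 calls, 1125 to 2602 higher and 1372 to 2493 lower. For the difference of responses it gave 4709 to 6296 calls, 2304 to 3143 higher and 2378 to 3183 lower. The sum of responses called 0 to 0 genes. Calls in both responses with opposite sign numbered 1299 to 2618, and 0 to 5 had the same sign (5 without replicate 1 and 1 without replicate 3, labelled KO LPS and KO medium in that order). The count of 4186 fell to 2543 without replicate 2 labelled KO LPS (1171 higher, 1372 lower), to 2630 without replicate 3 labelled KO LPS (1167 higher) and to 2713 without replicate 1 labelled KO medium (1125 higher); without replicate 2 labelled KO medium 1223 were higher. Calls in both responses fell to 1299 without replicate 3 of WT LPS, 1365 without replicate 1 of WT medium and 1406 without replicate 3 of WT medium. The log2 folds of genes that were not called changed sign for Pkm (0.15 by library size alone), Arg1 (0.078 by library size alone, 0.0026 without replicate 2 labelled KO LPS, 0.68 without replicate 3 labelled KO medium) and Tlr4 (0.63 by library size alone, 0.13 without replicate 3 labelled KO LPS, 0.15 without replicate 3 labelled KO medium). With 1 library left out Arg1 ranged over -4.81 to 0.68 and Tlr4 over -0.22 to 0.15. The cause of these changes was not tested. Deviations of same-numbered libraries labelled KO correlated at 0.052, -0.28 and 0.28, and not every library correlated best with its own number. Deviations from a mean of 3 libraries are not independent, so these values cannot tell whether same-numbered libraries share an animal. With the replicate block 2468 genes were called, 1017 higher and 1451 lower, the difference of responses had 1870 higher and 2236 lower calls, and 1162 genes were called in both responses with opposite sign.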
